A study of Mus musculus with 28 samples.

Results

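The effect of an Lmo2 transgene on early mouse thymocytes was described from RNA sequencing of 9 libraries of the DN2/3 subset, 5 from Lmo2tg mice and 4 from wild-type mice, out of 28 libraries in the series. The libraries were taken by genotype and subset as their titles give them, and 14371 genes passed the filter on low counts out of 24421 gene symbols in the count table. Lmo2tg animals carry an Lmo2 transgene and the wild-type animals are C57BL/6. The protocols also name Ldb1flox/flox mice, the Lck-Cre, Rag1-Cre and IL-7Ra-Cre lines and a Rosa26-EYFP reporter, without saying which animals of these libraries carried a Cre or the reporter. The other 19 libraries are Lmo2tg; Ldb1-KO at DN2/3 (5 libraries, the transgene with a deletion of Ldb1, called Ldb1-KO below) and the same 3 genotypes at DN4 (5 Lmo2tg, 4 wild type and 5 Ldb1-KO), a later subset. The promoter that drives the transgene, the age and sex of the mice, the sorting gates and whether each library came from a separate animal were not in the labels, so p-values measure the spread between these libraries. The labels call all samples CD4 T cells, whereas Cd4 transcript averaged 4.19 ± 2.31 CPM in Lmo2tg and 0.98 ± 0.246 CPM in wild type at DN2/3 (SD, as for every ± between means below, n = 5 Lmo2tg and 4 wild type).

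Thymocytes that carry neither CD4 nor CD8 pass through double-negative stages. At DN2 they still express the receptor Kit, and at DN3 they rearrange the T-cell receptor beta chain with the Rag recombinase and pair it with pre-T alpha, the product of Ptcra, in the pre-T-cell receptor. A cell whose beta chain signals (beta-selection) then moves on to DN4. Lmo2 is a LIM-only adaptor without DNA-binding activity of its own. It holds together complexes in which the cofactor Ldb1, a basic helix-loop-helix protein such as Lyl1 or Tal1 with its E-protein partner, and a GATA factor sit side by side on DNA. Lmo2 is normally shut off as progenitors commit to the T lineage, and its misexpression is a known cause of T-cell leukaemia in mice and humans.

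Several features of the libraries stand beside every result. Total counts ran from 31.28 to 74.68 M in Lmo2tg, where replicates 4 and 5 were the shallow ones, and from 56.04 to 106.9 M in wild type. Levels are given as CPM, the count scaled to a common library size with TMM factors. A count of 3, the floor used below for genes at 0, was worth 0.0268 to 0.0985 CPM. Libraries of the Lmo2tg group varied more among themselves than those of the wild type, with a median SD per gene of 0.291 against 0.166 on the log2 CPM scale. Wild-type replicates 2, 3 and 4 held Xist (1241 to 2571 CPM) together with Y-linked transcripts such as Ddx3y (11.4 to 56.9 CPM), wild-type replicate 1 held Y-linked transcripts only, Lmo2tg replicate 2 held Xist only (1567 CPM) and the other 4 Lmo2tg libraries Y-linked transcripts only. The 4 libraries with Xist therefore fall unevenly over the genotypes, and counts are also given without them. This leaves 4 Lmo2tg libraries and 1 wild-type library whose spread is then assumed to be like that of the other groups. That fit tested 15346 genes and called fewer of them in both directions. Its counts within a list are therefore not to be set beside the shares among all genes, which come from the fit of all 28 libraries. Wild-type libraries also carry another style of library name than the transgenic ones, so library series and genotype cannot be told apart.

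The transgene was checked first. Lmo2 (chr2:103957903-103981878 on GRCm38, build mm10) had 37.5, 29.6, 32.9, 28.2 and 34.9 CPM in Lmo2tg libraries, against 0.41, 0.203, 0.297 and 0.179 CPM in wild-type libraries (log2 fold 6.91 ± 0.34, adjusted p = 4.04e-14). The groups did not overlap, and the lowest Lmo2tg library lay far above the highest wild-type library. Counts are given per gene symbol, so transcripts of the transgene and of the mouse's own Lmo2 cannot be told apart. The standard error after each log2 fold and the two-sided adjusted p, by the edgeR quasi-likelihood test with Benjamini-Hochberg adjustment over 14371 genes, are given in this form throughout. Ldb1, the partner that is intact in both groups, had 399, 314, 394, 403 and 478 CPM in Lmo2tg libraries, against 550.4, 463, 496 and 535 CPM in wild-type libraries (log2 fold -0.36 ± 0.34, adjusted p = 0.472). Its ranges overlapped and it did not pass the test, although in a fit of the 9 libraries alone it did (log2 fold -0.35, adjusted p = 0.0418). In Ldb1-KO libraries of the same subset Lmo2 averaged 30.5 ± 7.43 CPM and Ldb1 98.1 ± 26.9 CPM.

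Expression of 4242 genes (29.5% of those tested) differed between the genotypes at an adjusted p below 0.05, of which 2175 (15.1%) were higher and 2067 (14.4%) lower in Lmo2tg. Changes of over 2-fold numbered 1093 higher (7.61%) and 1109 lower (7.72%). In 4078 genes (28.4%) no Lmo2tg library overlapped a wild-type library, and 3491 of these were among the genes called. The median log2 fold over all genes tested was 0.01. Without the 4 libraries with Xist, 1130 genes were called, 517 higher and 613 lower.

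**Figure D1:**
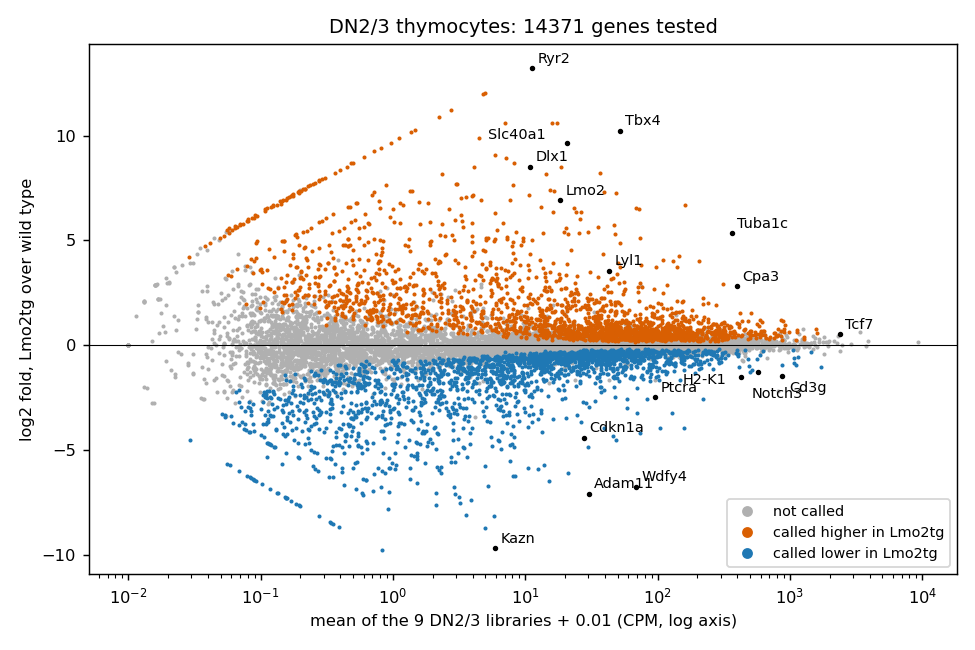
Each point is 1 of the 14371 genes tested, placed by its mean level over the 9 DN2/3 libraries (CPM plus 0.01, log axis) and its log2 fold of Lmo2tg over wild type. Orange points are the 2175 genes called higher in Lmo2tg and blue points the 2067 called lower, with named genes labelled from Ryr2 at 13.22 to Kazn at -9.69, and the slanting lines at the left edge are genes with no count in 1 of the groups, whose fitted folds have no fixed meaning.

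The largest rises were ranked among called genes whose groups did not overlap and whose Lmo2tg mean was at least 5 CPM. They were genes almost silent in wild type. Slc40a1, which encodes the iron exporter ferroportin, had 54.9, 23.3, 31.5, 21.7 and 55.7 CPM in Lmo2tg libraries, against 0.0293, 0.0676, 0.0914 and 0 CPM in wild-type libraries (log2 fold 9.66 ± 1.13, adjusted p = 2.81e-07). Tbx4, a T-box factor known from hindlimb and lung development, had 156, 54.7, 16.8, 127 and 111 CPM in Lmo2tg libraries, against 0, 0, 0.0685 and 0.179 CPM in wild-type libraries (log2 fold 10.23 ± 1.79, adjusted p = 8.35e-05). Dlx1, a homeobox factor of the developing forebrain, had 11.6, 15.2, 22.8, 21.5 and 26.6 CPM in Lmo2tg libraries, against 0, 0.0676, 0.0799 and 0.0536 CPM in wild-type libraries (log2 fold 8.51 ± 1.21, adjusted p = 5.24e-06). Each of these was high in all 5 Lmo2tg libraries and near the floor in all 4 wild-type libraries, although Tbx4 varied over a wide range among the Lmo2tg libraries. Faxc had 8.45, 16.9, 8.71, 11.4 and 18.8 CPM in Lmo2tg libraries, against 0, 0.0338, 0.0228 and 0.0358 CPM in wild-type libraries (log2 fold 8.94 ± 1.41, adjusted p = 3.72e-05). Lalba, the milk protein alpha-lactalbumin, had 13.7, 5.32, 10.5, 12.9 and 10.2 CPM in Lmo2tg libraries, against 0.0146, 0, 0 and 0.0447 CPM in wild-type libraries (log2 fold 9.06 ± 1.30, adjusted p = 6.24e-06), and lies on chromosome 15, which is described below. Against so low a wild-type level the folds depended on single libraries, with a log2 fold of 11.62 for Tbx4 and 10.58 for Lalba without wild-type replicate 4, and of 10.35 for Slc40a1 without wild-type replicate 3. Without the 4 libraries with Xist the calls ended for Tbx4 (log2 fold 15.46) and Faxc (12.34), and the log2 fold of Dlx1 was 13.14. Wild-type replicate 1, the 1 wild-type library left there, had no count for these 3 genes, so these folds have no fixed meaning.

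Further genes with the largest rises were at 0 or nearly so in wild type. Ryr2, a calcium release channel of the endoplasmic reticulum best known from heart muscle, had 8.93, 23.6, 36.1, 5.84 and 26.7 CPM in Lmo2tg and no count in wild type, a level at least 2323-fold higher when the floor of 3 counts over the group is set against it. Kcns3, a modulatory potassium channel subunit, had 7.71, 4.24, 13.4, 11.7 and 6.02 CPM in Lmo2tg and no count in wild type, at least 931-fold higher. Both were present in all 5 Lmo2tg libraries, as a ranking without overlap requires where wild type is at 0. Slc22a4, an organic cation transporter, had 31.7, 22.3, 35.2, 23.3 and 30.2 CPM in Lmo2tg libraries, against 0.0146, 0.0676, 0 and 0 CPM in wild-type libraries (log2 fold 10.62 ± 0.88, adjusted p = 3.2e-09). Sobp had 3.87, 14.7, 18, 11.7 and 14.5 CPM in Lmo2tg and 2 counts over the 4 wild-type libraries, a ratio of 2012 (95% counting interval 556 to 16617). Thsd4 differed from the others in this set in that replicate 5 held 36.7 CPM and the other 4 Lmo2tg libraries 0.0549 to 5.87 CPM, against no count in wild type (at least 686-fold higher over the group). Pof1b likewise ranged from 1.67 to 75.9 CPM in Lmo2tg, against 0 to 0.0358 CPM in wild type (log2 fold 10.61 ± 1.99, adjusted p = 0.000268). Thsd4 and Pof1b missed the threshold in limma-voom (adjusted p = 0.0613 and 0.0746), and with the Xist libraries left out (adjusted p = 0.308 and 0.132). The log2 fold of Pof1b was 9.97 without Lmo2tg replicate 3 and 11.43 without wild-type replicate 4, and that of Slc22a4 12.23 without wild-type replicate 2. Srp54b had 36.7, 35.2, 35.4, 30.3 and 29.3 CPM in Lmo2tg libraries, against 0.0146, 0.372, 0.0343 and 0.00894 CPM in wild-type libraries. Of the 101-base stretches of its transcripts 87.5% also occur in transcripts of other genes, so its value is uncertain. It averaged 34.7 ± 1.15 CPM in Ldb1-KO DN2/3 libraries, where Slc22a4 averaged 0.386 ± 0.252 CPM and Ryr2 0.264 ± 0.345 CPM. At DN4 Srp54b averaged 32.3 ± 2.08 CPM in Lmo2tg and 0.087 ± 0.0471 CPM in wild type. The part of the library series in its level was not tested.

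The largest falls were ranked among called genes whose groups did not overlap and whose wild-type mean was at least 5 CPM. A moderate wild-type level was thus a condition of the ranking. Genes below it, such as Hoxa4 with 1.84 ± 0.106 CPM in wild type, were not ranked. Wdfy4, which takes part in cross-presentation by dendritic cells, had 0.619, 5.3, 0.124, 0.427 and 0.241 CPM in Lmo2tg libraries, against 156, 146, 151 and 158 CPM in wild-type libraries (log2 fold -6.74 ± 0.79, adjusted p = 2.88e-07). Adam11, a catalytically inactive ADAM family member, had 0.132, 1.82, 0.0549, 0.263 and 0.0602 CPM in Lmo2tg libraries, against 54.1, 59, 77.2 and 78.7 CPM in wild-type libraries (log2 fold -7.08 ± 0.69, adjusted p = 1.66e-08). Both kept their highest Lmo2tg level in replicate 2, still below every wild-type library. Kazn had 0.0263, 0.0288, 0, 0 and 0 CPM in Lmo2tg libraries, against 11.9, 13.8, 14 and 13.2 CPM in wild-type libraries (log2 fold -9.69 ± 0.71, adjusted p = 9.28e-11). Ica1 had 0.0263, 0.0865, 0, 0 and 0 CPM in Lmo2tg libraries, against 6.42, 7.42, 10.1 and 8.05 CPM in wild-type libraries (log2 fold -8.08 ± 0.62, adjusted p = 2.3e-10). Npas2, a paralogue of the circadian factor Clock, had 0.0263, 0.0577, 0, 0 and 0.181 CPM in Lmo2tg libraries, against 5.24, 6.42, 7.88 and 8.69 CPM in wild-type libraries (log2 fold -7.21 ± 0.76, adjusted p = 6.07e-08). No Lmo2tg library reached a wild-type library in any of them, as this ranking required. Msantd3 averaged 0.042 ± 0.028 CPM in Lmo2tg and 7.16 ± 1.49 CPM in wild type, Atoh8 0.0603 ± 0.062 CPM in Lmo2tg and 6.43 ± 0.825 CPM in wild type and Fam184a 0.138 ± 0.293 CPM in Lmo2tg and 11.5 ± 1.7 CPM in wild type (log2 folds -7.52, -6.74 and -6.73, adjusted p = 2.96e-11, 1.67e-06 and 6.16e-06). Without Lmo2tg replicate 2 the log2 fold was -9.15 for Adam11, -8.73 for Wdfy4 and -9.46 for Ica1. Without Lmo2tg replicate 5 it was -10.15 for Fam184a and -8.09 for Npas2. All 5 were called in either case. Mira and Hoxa7 fell as part of the Hoxa cluster, and Ifi44 with the interferon genes, as described below.

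Ranked by the difference in CPM among changes of over 2-fold without overlap between the groups, other genes led the rises. Actg1, cytoplasmic gamma-actin, had 890.2, 1280.1, 1292, 1209 and 1099.8 CPM in Lmo2tg libraries, against 551, 456, 519.5 and 457 CPM in wild-type libraries (log2 fold 1.22 ± 0.10, adjusted p = 1.6e-09). Flna, the actin crosslinker filamin A, had 654, 517, 742, 423 and 644 CPM in Lmo2tg libraries, against 213, 180.2, 206 and 227 CPM in wild-type libraries (log2 fold 1.53 ± 0.18, adjusted p = 2.27e-07). Dpp4, the surface peptidase CD26, had 960.2, 674, 926, 625 and 817 CPM in Lmo2tg libraries, against 326, 442, 386 and 344 CPM in wild-type libraries (log2 fold 1.10 ± 0.26, adjusted p = 0.00195). Lgals1, the lectin galectin-1, had 544, 659, 952, 709.9 and 733 CPM in Lmo2tg libraries, against 262, 244, 249.5 and 250.4 CPM in wild-type libraries (log2 fold 1.52 ± 0.26, adjusted p = 7.48e-05). All 5 Lmo2tg libraries lay above all 4 wild-type libraries for each of the 4, as this ranking required. Lgals1 is a chromosome 15 gene. Ywhaz, also on chromosome 15, averaged 796 ± 127 CPM in Lmo2tg and 343 ± 21.9 CPM in wild type (log2 fold 1.21 ± 0.14, adjusted p = 2.74e-07). Tuba1c, a tubulin on the same chromosome, averaged 643 ± 256 CPM in Lmo2tg and 15.8 ± 1.64 CPM in wild type (log2 fold 5.34 ± 0.37, adjusted p = 2.8e-11). Ubb, a polyubiquitin gene, had 512 ± 65.5 CPM in Lmo2tg and 66.6 ± 6.22 CPM in wild type (log2 fold 2.94 ± 0.19, adjusted p = 8.22e-12). Of the transcripts of these genes, 29.8% of the 101-base stretches in Actg1, 12.4% in Ywhaz, 45.9% in Tuba1c and 43.5% in Ubb also occur in other genes, and the part of shared reads in these differences was not tested. Leaving out the Xist libraries ended the calls of Dpp4 (log2 fold 1.35, adjusted p = 0.106) and Lgals1 (1.48, adjusted p = 0.0826).

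The falls ranked the same way, again among changes of over 2-fold, came next. Ppt1, a lysosomal thioesterase, had 378, 253, 409, 260.0 and 347 CPM in Lmo2tg libraries, against 667, 847, 779 and 709.9 CPM in wild-type libraries (log2 fold -1.19 ± 0.16, adjusted p = 1.59e-06). Pag1, a membrane adaptor that recruits the kinase Csk, had 287, 250.4, 316, 244 and 310.0 CPM in Lmo2tg libraries, against 469, 646, 570.1 and 601 CPM in wild-type libraries (log2 fold -1.02 ± 0.16, adjusted p = 1.8e-05). Cmah, which makes N-glycolylneuraminic acid, had 147, 27.2, 78.1, 31.7 and 62.3 CPM in Lmo2tg libraries, against 368, 531, 369.8 and 354 CPM in wild-type libraries (log2 fold -2.55 ± 0.47, adjusted p = 0.000143). The groups stayed apart in all 3, as this ranking required, with a spread over several fold among Lmo2tg libraries for Cmah. Rn45s, the ribosomal RNA precursor, averaged 1150.0 ± 70.3 CPM in Lmo2tg and 2393 ± 1076 CPM in wild type (log2 fold -1.06 ± 0.22, adjusted p = 0.000577), and its wild-type libraries ranged from 1407 to 3855 CPM. The calls ended for Rn45s (log2 fold -0.29, adjusted p = 0.644) and Pag1 (-0.70, adjusted p = 0.117) without the 4 libraries with Xist. The falls of Cd3g, Notch3, Rag1 and H2-K1 belong to groups described below.

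Genes of the Lmo2-Ldb1 complex were examined as a list of 21, of which 19 were tested. Of these, 7 rose, the transgenic Lmo2 among them (36.8%, against 15.1% of all genes) and 3 fell (15.8%, against 14.4%), with a median log2 fold of 0.24. Lyl1, the helix-loop-helix partner of Lmo2, had 101, 36.4, 92.3, 44.9 and 88.2 CPM in Lmo2tg libraries, against 5.96, 5.07, 6.13 and 7.52 CPM in wild-type libraries (log2 fold 3.55 ± 0.61, adjusted p = 7.28e-05). Lmo2tg replicates 2 and 4 held the lowest levels, and still several times those of wild type. Lmo4, another LIM-only gene, averaged 53 ± 14.8 CPM in Lmo2tg and 30.4 ± 2.7 CPM in wild type (log2 fold 0.80 ± 0.16, adjusted p = 0.000348). Tcf12, the E protein HEB, rose by a small amount, with 575 to 667 CPM in Lmo2tg and 421 to 497 CPM in wild type (log2 fold 0.47 ± 0.10, adjusted p = 0.000569). Members outside the naming rule, chosen after their values were seen, were Tal1, Lmo1 and Gata3. Tal1 fell, with 0.217 ± 0.141 CPM in Lmo2tg and 1.26 ± 0.405 CPM in wild type (log2 fold -2.48 ± 0.62, adjusted p = 0.00322), as did the LIM-only gene Lmo1, with 0.0482 ± 0.108 CPM in Lmo2tg and 0.889 ± 0.292 CPM in wild type (log2 fold -4.58 ± 0.99, adjusted p = 0.000856). Gata3, the GATA factor of T cells, rose, with 159.8 ± 18.9 CPM in Lmo2tg and 122 ± 6.76 CPM in wild type (log2 fold 0.39 ± 0.14, adjusted p = 0.0375). Leaving out the 4 libraries with Xist left 1 rise and 0 falls, and ended the calls of Lyl1 (log2 fold 3.77, adjusted p = 0.0659), Lmo4 (0.57, adjusted p = 0.19), Tcf12 (0.48, adjusted p = 0.115), Tal1 (-1.97, adjusted p = 0.282), Lmo1 (-4.54, adjusted p = 0.0535) and Gata3 (0.37, adjusted p = 0.435). The log2 fold of Lmo1 was -8.73 without Lmo2tg replicate 5. Gata3 lay near the threshold and missed it without any 1 of Lmo2tg replicates 1, 3 and 5 and the 4 wild-type libraries (adjusted p = 0.0652, 0.0507, 0.0942, 0.0549, 0.107, 0.0678 and 0.0695).

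Stem and progenitor transcription factors did not move as 1 group. Of 34 listed factors 29 were tested, of which 5 rose (17.2%, against 15.1% of all genes) and 14 fell (48.3%, against 14.4%). The median log2 fold was -0.58. The counts were 1 and 9 with the 4 libraries with Xist left out, where the calls ended for Hhex (log2 fold 4.76, adjusted p = 0.0692) and Nfe2 (2.32, adjusted p = 0.345). The rises included Hhex and Nfe2, both named after their values were seen, as are the other genes of this paragraph. Hhex, a homeobox factor needed for early haematopoiesis, had 67.3, 54.9, 89.6, 57.3 and 66.9 CPM in Lmo2tg libraries, against 2.59, 3.33, 3.51 and 3.74 CPM in wild-type libraries (log2 fold 4.35 ± 0.74, adjusted p = 6.09e-05). Nfe2, a bZIP factor of the erythroid and megakaryocytic lineages that lies on chromosome 15, had 174, 57.4, 223, 96.1 and 205 CPM in Lmo2tg libraries, against 34.9, 34.8, 40.2 and 41.5 CPM in wild-type libraries (log2 fold 2.00 ± 0.68, adjusted p = 0.0281). All 5 Lmo2tg libraries exceeded wild type in both, and Nfe2 was lowest in Lmo2tg replicates 2 and 4. The falls included Bcl11a, a zinc finger factor of early lymphoid cells, with 0.079, 1.35, 0, 0.328 and 0 CPM in Lmo2tg libraries, against 16.8, 17.9, 13.9 and 18.4 CPM in wild-type libraries (log2 fold -5.51 ± 0.94, adjusted p = 6.12e-05). Spi1, the factor PU.1, averaged 0.329 ± 0.356 CPM in Lmo2tg and 3.08 ± 0.419 CPM in wild type (log2 fold -3.19 ± 0.74, adjusted p = 0.00157). Hoxb4 averaged 0.12 ± 0.0621 CPM in Lmo2tg and 3.19 ± 0.584 CPM in wild type (log2 fold -4.63 ± 0.40, adjusted p = 1.57e-09). The highest Lmo2tg value of Bcl11a and Spi1 was that of replicate 2, and without it their log2 folds were -7.61 and -4.15. Nfe2 lay near the threshold and missed it without Lmo2tg replicate 3 or 5, without any 1 wild-type library (adjusted p = 0.0592, 0.0502, 0.0678, 0.0692, 0.0596 and 0.0574) and without the 2 shallow libraries (0.0512).

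Markers of early thymic progenitors and DN2 cells were all tested, 19 in number, of which 6 rose (31.6%, against 15.1% of all genes) and 6 fell (31.6%, against 14.4%). Lyl1, Hhex, Nfe2, Bcl11a, Spi1, Tal1 and Mycn stand in this list and in that of stem and progenitor factors. Besides Lmo2, Lyl1, Hhex and Nfe2 the rises were Cd93 and Kit. Cd93, a C-type lectin-like surface receptor of progenitors, had 489, 231, 366, 219 and 395 CPM in Lmo2tg libraries, against 62.9, 79.7, 70.2 and 70.1 CPM in wild-type libraries (log2 fold 2.27 ± 0.52, adjusted p = 0.00149). Kit, the stem cell factor receptor, had 199, 109.8, 187, 109.5 and 150.5 CPM in Lmo2tg libraries, against 84.5, 88.6, 80.2 and 70.1 CPM in wild-type libraries (log2 fold 0.90 ± 0.31, adjusted p = 0.027). The falls were Bcl11a, Mef2c, Spi1, Tal1, Mycn and Cd34, the last a progenitor sialomucin with 0.0527, 1.4, 0.0824, 0.46 and 0.12 CPM in Lmo2tg libraries, against 2.68, 3.51, 3.14 and 3.15 CPM in wild-type libraries (log2 fold -2.86 ± 0.76, adjusted p = 0.00595). Mef2c, a MADS-box factor, averaged 0.153 ± 0.278 CPM in Lmo2tg and 4.26 ± 0.588 CPM in wild type (log2 fold -4.66 ± 0.90, adjusted p = 0.000253), with a log2 fold of -7.12 without Lmo2tg replicate 2, its highest library. Cd44 (3.75 ± 1.45 CPM in Lmo2tg and 6.11 ± 0.34 CPM in wild type, adjusted p = 0.228) and Flt3 (0.136 ± 0.0916 CPM in Lmo2tg and 0.133 ± 0.0441 CPM in wild type, adjusted p = 0.935) did not pass the test. The summed level of the 19 markers was 555 to 1094 CPM in Lmo2tg and 264 to 286 CPM in wild type, while their median log2 fold was -0.16. Most of the sum in Lmo2tg came from the markers that rose, the transgenic Lmo2 among them, and those that fell held little of it. With the 4 libraries with Xist left out 1 marker rose and 4 fell, and the calls ended for Cd93 (log2 fold 2.54, adjusted p = 0.156) and Kit (0.93, adjusted p = 0.378). Kit also missed the threshold without any 1 of Lmo2tg replicates 1 and 3 and wild-type replicates 1, 3 and 4 (adjusted p = 0.0662, 0.0626, 0.0519, 0.059 and 0.0763). The log2 fold of Cd34 was -4.29 without Lmo2tg replicate 2.

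**Figure D2:**
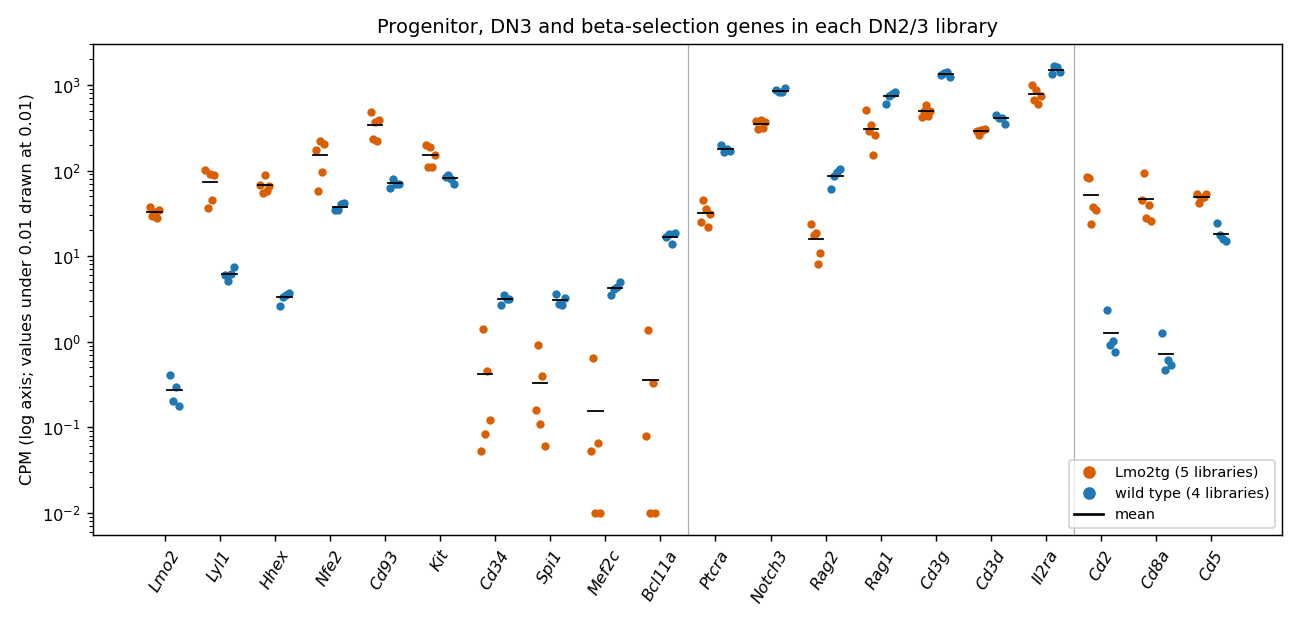
Each point is the level of a gene in 1 DN2/3 library (CPM, log axis, values under 0.01 drawn at 0.01), with Lmo2tg in orange to the left of wild type in blue, and black bars show group means. The genes were picked from their lists with values known: the left block holds progenitor markers higher (Lyl1, Hhex, Cd93) or lower in Lmo2tg (Cd34, Bcl11a, Mef2c), the middle block lower pre-T-cell receptor and DN3 genes, in lists where 12 of 32 and 2 of 16 members rose, and the right block Cd2, Cd8a and Cd5, higher, where Id3 fell.

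The Hoxa genes, homeobox factors expressed in stem cells and early T progenitors, formed the longest run of neighbouring genes called in 1 direction, 12 tested genes between Skap2 and Hibadh (chr6:51859165-52640300). Hoxa7 had 0.0263, 0.0865, 0, 0.131 and 0 CPM in Lmo2tg libraries, against 12.9, 14.3, 12.2 and 12.6 CPM in wild-type libraries (log2 fold -8.15 ± 0.65, adjusted p = 4.3e-10). Hoxa5 had 0, 0.0577, 0, 0.0656 and 0 CPM in Lmo2tg libraries, against 5.25, 5, 3.86 and 4.84 CPM in wild-type libraries (log2 fold -7.63 ± 0.62, adjusted p = 6.87e-10). In both, 2 or 3 of the 5 Lmo2tg libraries had no count. Hoxa3 had 2 counts over the 5 Lmo2tg libraries and 659 over the 4 wild-type libraries, a ratio of wild type over Lmo2tg of 284 (95% counting interval 78.3 to 2351). Hoxa4 had no count in any Lmo2tg library and 597 counts in wild type, and was at least 172-fold lower in Lmo2tg. Mira, a noncoding RNA of the cluster, averaged 0.0202 ± 0.0451 CPM in Lmo2tg and 11.1 ± 1.6 CPM in wild type (log2 fold -8.70 ± 0.69, adjusted p = 3.73e-10). Hoxa9 averaged 0.0609 ± 0.0846 CPM in Lmo2tg and 1.5 ± 0.625 CPM in wild type (log2 fold -4.63 ± 0.87, adjusted p = 0.000184). In Ldb1-KO libraries the levels were 8.26 ± 3.52 CPM for Hoxa7, 4.93 ± 1.18 for Hoxa5 and 5.97 ± 3.33 for Hoxa9. These do not stand for all named genes. Rag1 (284 ± 60.6 CPM) and Idi1 (76.2 ± 20.7 CPM), described below, lay near their Lmo2tg means in Ldb1-KO libraries. At the edges of the run, Skap2, a signalling adaptor, averaged 2.02 ± 0.72 CPM in Lmo2tg and 13.6 ± 1.38 CPM in wild type (log2 fold -2.75 ± 0.33, adjusted p = 4e-07). Hibadh, a mitochondrial dehydrogenase, had 119.8 ± 9.22 CPM in Lmo2tg and 188 ± 19.1 CPM in wild type (log2 fold -0.65 ± 0.10, adjusted p = 1.78e-05), whereas the next tested genes on either side, Snx10 (log2 fold -0.32, adjusted p = 0.462) and Tax1bp1 (-0.06, adjusted p = 0.803), did not pass the test. Without the Xist libraries Hibadh missed the threshold (adjusted p = 0.0612), and without Lmo2tg replicate 2 the log2 fold was -8.61 for Hoxa5 and -6.02 for Hoxa9, while Mira had no count in the remaining Lmo2tg libraries. Of the stretches of Hoxa7 16.9% and of Hoxa3 20.7% are shared with other genes. The exons of Hoxa7 and Hoxa3 overlap those of other transcripts over 20.4% and 27.1% of their bases, and the library kit does not mark strand, so reads of sense and antisense transcripts of the cluster cannot be told apart.

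**Figure D3:**
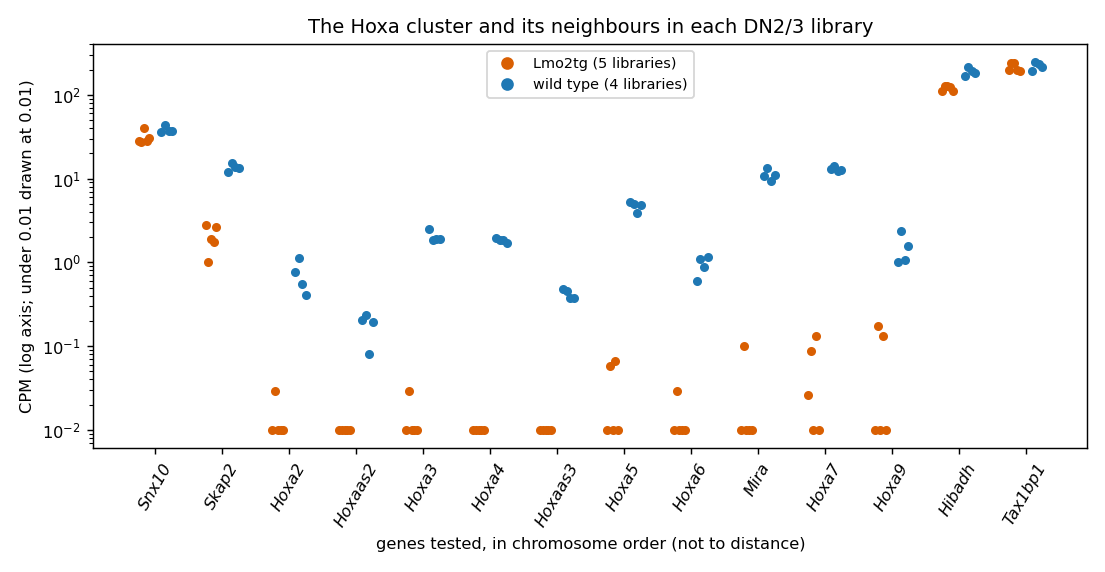
Levels of the genes tested from Snx10 to Tax1bp1 in each DN2/3 library (CPM, log axis, values under 0.01 drawn at 0.01), in chromosome order and not to distance, with Lmo2tg in orange left of wild type in blue. Lmo2tg libraries sit at or near the bottom from Hoxa2 to Hoxa9, while Snx10 and Tax1bp1 at the ends overlap between the groups.

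Genes of the pre-T-cell receptor were called in both directions. In the list of pre-TCR, CD3 and proximal signalling genes, all 32 were tested, 12 rose (37.5%, against 15.1% of all genes) and 7 fell (21.9%, against 14.4%). Ptcra, the pre-T alpha chain, had 25, 44.8, 35.8, 22.2 and 30.9 CPM in Lmo2tg libraries, against 198, 163, 176 and 171 CPM in wild-type libraries (log2 fold -2.48 ± 0.29, adjusted p = 2.25e-07). Cd3g, the CD3 gamma chain, had 426, 501, 592, 438 and 499 CPM in Lmo2tg libraries, against 1319.9, 1372, 1438 and 1228 CPM in wild-type libraries (log2 fold -1.45 ± 0.12, adjusted p = 5.36e-10). Neither gene overlapped between the groups, as the ranking by CPM that named Cd3g required of it. The neighbouring CD3 genes, named after their values were seen, fell less: Cd3d averaged 292 ± 16.7 CPM in Lmo2tg and 406 ± 39.8 CPM in wild type (log2 fold -0.48 ± 0.11, adjusted p = 0.00163). Cd3e averaged 343 ± 31.6 CPM in Lmo2tg and 446 ± 21.6 CPM in wild type (log2 fold -0.38 ± 0.09, adjusted p = 0.0024). Syk, a kinase of pre-TCR signalling, had 52.6, 44.5, 57.3, 45.8 and 55.5 CPM in Lmo2tg libraries, against 133, 128, 116 and 122 CPM in wild-type libraries (log2 fold -1.28 ± 0.12, adjusted p = 3.61e-09). Its relative Zap70, used by the mature receptor and named after its values were seen, moved the other way, with 176, 157, 169.8, 209 and 194 CPM in Lmo2tg libraries, against 79.3, 55.5, 59.1 and 53 CPM in wild-type libraries (log2 fold 1.55 ± 0.18, adjusted p = 2.35e-07). Sh2d1a, the adaptor SAP, averaged 149 ± 16 CPM in Lmo2tg and 56.7 ± 6.76 CPM in wild type (log2 fold 1.39 ± 0.12, adjusted p = 2.52e-09), with 24.2% of its 101-base stretches shared with other genes. In the fit that left out the 4 libraries with Xist 6 members rose and 3 fell, and the calls ended for Cd3d (log2 fold -0.58, adjusted p = 0.0516) and Cd3e (-0.41, adjusted p = 0.116).

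Of 12 V(D)J recombination genes tested, 3 rose (25%) and 2 fell (16.7%), against 15.1% and 14.4% of all genes, a difference of few genes. Rag2, a subunit of the recombinase, had 23.5, 17.6, 18.8, 8.14 and 10.7 CPM in Lmo2tg libraries, against 61.6, 85.6, 96.3 and 104 CPM in wild-type libraries (log2 fold -2.46 ± 0.35, adjusted p = 6.17e-06). Rag1, the other subunit, had 511, 288, 342, 152 and 257 CPM in Lmo2tg libraries, against 600.1, 738, 795 and 837 CPM in wild-type libraries (log2 fold -1.26 ± 0.34, adjusted p = 0.00603), with Lmo2tg replicate 1 nearest to the wild-type range. Without the shallow Lmo2tg replicates 4 and 5 Rag1 missed the threshold (log2 fold -0.95, adjusted p = 0.0629). Hmgb1, a DNA-bending protein that helps the recombinase, averaged 1001 ± 276 CPM in Lmo2tg and 582 ± 49.4 CPM in wild type (log2 fold 0.78 ± 0.16, adjusted p = 0.00045), with 18% of its 101-base stretches shared with other genes. Dntt, the terminal transferase, averaged 2199.9 ± 375 CPM in Lmo2tg and 2670.4 ± 209 CPM in wild type and did not pass the test (adjusted p = 0.0747). Only 1 of the 3 rises was called when wild-type replicate 4 was left out, and 4 genes were called lower when Lmo2tg replicate 1 was left out. With the Xist libraries left out 0 rose and 1 fell, and the calls ended for Rag1 (log2 fold -0.93, adjusted p = 0.388) and Hmgb1 (0.50, adjusted p = 0.253).

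Notch signalling drives the DN3 stage. Of 26 Notch receptors and targets tested 5 rose (19.2%, against 15.1% of all genes) and 5 fell (19.2%, against 14.4%). Their median log2 fold was -0.10. Notch3 had 382, 304, 385, 312 and 374 CPM in Lmo2tg libraries, against 867, 824, 818 and 930.3 CPM in wild-type libraries (log2 fold -1.29 ± 0.20, adjusted p = 1.39e-05). Notch2 had 19.3, 31.1, 22, 26.2 and 27.1 CPM in Lmo2tg libraries, against 60.8, 60.9, 63.6 and 71.6 CPM in wild-type libraries (log2 fold -1.35 ± 0.14, adjusted p = 4.05e-08). Notch1 was lower in every Lmo2tg library, 1595 ± 136 CPM in Lmo2tg and 2101 ± 175 CPM in wild type, without passing the test (adjusted p = 0.169). The targets Hes1 and Dtx1 averaged 107 ± 69.1 CPM in Lmo2tg and 128 ± 22.6 CPM in wild type and 131 ± 44.3 CPM in Lmo2tg and 138 ± 14 CPM in wild type (adjusted p = 0.705 and 0.907), and their ranges overlapped between the groups. Il2ra, the interleukin-2 receptor alpha chain used to stage DN cells and named after its values were seen, had 1000.3, 673, 875, 606 and 740.5 CPM in Lmo2tg libraries, against 1357, 1654, 1605 and 1433 CPM in wild-type libraries (log2 fold -0.96 ± 0.29, adjusted p = 0.0134). Trib2, a pseudokinase, rose, with 137, 88.9, 82.6, 68.1 and 77.5 CPM in Lmo2tg libraries, against 12.1, 14.8, 14 and 15.2 CPM in wild-type libraries (log2 fold 2.69 ± 0.24, adjusted p = 2.81e-09). Of the 16 markers of DN3 8 fell (50%, against 14.4% of all genes), namely Ptcra, Cd3g, Cd3d, Cd3e, Rag1, Rag2, Notch3 and Il2ra. Rises numbered 2 (12.5%, against 15.1%), Tcf12 and Ets1. The summed level of the 16 markers was 6089 to 7132 CPM in Lmo2tg and 9678 to 9893 CPM in wild type. The fit without the 4 libraries with Xist gave other counts: 4 of these markers fell and 0 rose, and in the Notch list 2 rose and 3 fell. Il2ra missed the threshold there (log2 fold -0.76, adjusted p = 0.418) and without the 2 shallow Lmo2tg libraries (-0.82, adjusted p = 0.0787).

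Of 34 T-lineage transcription factors tested 11 rose (32.4%, against 15.1% of all genes) and 6 fell (17.6%, against 14.4%). Tcf7, the factor TCF-1 that starts the T programme, had 2929, 3025, 2752, 2498 and 2571 CPM in Lmo2tg libraries, against 1892, 1742, 1928 and 2014 CPM in wild-type libraries (log2 fold 0.54 ± 0.08, adjusted p = 8.76e-06). Hivep3, a zinc finger factor, had 45.3, 56.4, 57.1, 63.7 and 68.9 CPM in Lmo2tg libraries, against 134, 101, 118 and 125 CPM in wild-type libraries (log2 fold -1.04 ± 0.20, adjusted p = 0.00031). Lef1, the relative of Tcf7, and Zbtb7b were among the other rises, with 318 ± 109 CPM in Lmo2tg and 147 ± 13.5 CPM in wild type (log2 fold 1.11 ± 0.25, adjusted p = 0.00147) for Lef1. Lef1 and Zbtb7b are named after their values were seen, and 12.4% of the stretches of Lef1 are shared. Zbtb7b was rare, with 83 counts in Lmo2tg and 2 in wild type, and its call was not stable. It missed the threshold in limma-voom (adjusted p = 0.277) and in edgeR without the filter on low counts (0.0598). The call also ended without Lmo2tg replicate 1 or 2 (adjusted p = 0.163 and 0.0574) and without any 1 wild-type library (0.0915, 0.0533, 0.0997 and 0.109). Without the 4 libraries with Xist its log2 fold was 6.89. Bcl11b, the commitment factor, averaged 580.2 ± 40 CPM in Lmo2tg and 674 ± 60.4 CPM in wild type and did not pass the test (adjusted p = 0.142). The count of rises was 7 without wild-type replicate 2 or without wild-type replicate 3, and without the 4 libraries with Xist 1 rose and 1 fell, with the call of Lef1 (log2 fold 1.07, adjusted p = 0.203) lost.

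The 250 bases before the start of 6 genes of these groups are shown because Lmo2 complexes are known to bind an E-box, CANNTG, next to a GATA sequence. Capitals mark CANNTG, which reads alike on both strands, and GATA on either strand, where TATC in the printed strand is GATA on the other. The sequences are from RefSeq on GRCm38.p6, read 5′ to 3′ toward the start site: Lyl1 (chr8:84701207-84701456, plus strand) and Cpa3 (chr3:20242182-20242431, minus strand), which rose, and Cd3g (chr9:44980432-44980681, minus strand), Cd3d (chr9:44981536-44981785, plus strand), Ptcra (chr17:46763713-46763962, minus strand) and Cdkn1a (chr17:29090729-29090978, plus strand), which fell.
Lyl1: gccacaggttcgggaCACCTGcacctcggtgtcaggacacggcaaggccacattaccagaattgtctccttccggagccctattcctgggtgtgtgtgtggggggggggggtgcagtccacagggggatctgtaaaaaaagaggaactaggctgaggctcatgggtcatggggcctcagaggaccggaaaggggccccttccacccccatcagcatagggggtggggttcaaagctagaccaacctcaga
Cpa3: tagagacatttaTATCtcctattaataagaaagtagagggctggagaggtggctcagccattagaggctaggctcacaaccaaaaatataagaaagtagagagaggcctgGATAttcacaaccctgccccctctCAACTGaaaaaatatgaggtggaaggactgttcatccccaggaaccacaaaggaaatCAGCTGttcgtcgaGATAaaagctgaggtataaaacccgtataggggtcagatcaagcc
Cd3g: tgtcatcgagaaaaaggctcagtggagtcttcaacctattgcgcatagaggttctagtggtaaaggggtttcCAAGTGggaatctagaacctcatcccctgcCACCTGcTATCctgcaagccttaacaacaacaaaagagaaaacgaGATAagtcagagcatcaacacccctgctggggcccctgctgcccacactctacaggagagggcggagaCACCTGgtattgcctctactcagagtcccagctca
Cd3d: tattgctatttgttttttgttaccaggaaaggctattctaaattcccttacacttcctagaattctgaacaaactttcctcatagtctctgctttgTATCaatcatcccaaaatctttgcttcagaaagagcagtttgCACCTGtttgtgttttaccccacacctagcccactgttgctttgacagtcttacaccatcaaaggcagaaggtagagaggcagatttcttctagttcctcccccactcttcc
Ptcra: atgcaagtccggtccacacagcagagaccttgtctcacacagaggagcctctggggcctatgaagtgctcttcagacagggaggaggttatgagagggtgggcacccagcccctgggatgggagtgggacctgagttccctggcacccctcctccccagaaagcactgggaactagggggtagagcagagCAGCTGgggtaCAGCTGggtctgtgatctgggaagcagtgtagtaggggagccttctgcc
Cdkn1a: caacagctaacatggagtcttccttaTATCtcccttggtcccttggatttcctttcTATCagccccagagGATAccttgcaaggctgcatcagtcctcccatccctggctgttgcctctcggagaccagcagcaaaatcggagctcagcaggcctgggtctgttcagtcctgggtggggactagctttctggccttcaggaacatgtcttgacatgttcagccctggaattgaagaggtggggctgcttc
The window held 1 CANNTG in Lyl1, 2 in Cpa3, 3 in Cd3g, 1 in Cd3d, 2 in Ptcra and 0 in Cdkn1a. GATA on either strand was found 0 times in Lyl1, 3 times in Cpa3, 2 times in Cd3g, 1 time in Cd3d, 0 times in Ptcra and 3 times in Cdkn1a. Of the 6 windows that of Cpa3 alone held CANNTG followed after 6 to 14 bases by GATA. Over all tested genes with a promoter sequence (10723, the first listed start of each, 250 bases before to 50 after it), 64.5% held CANNTG, 45% GATA on either strand and 2.54% the spaced pair on either strand. The shares were 62.8%, 42.4% and 2.35% for 1491 genes called higher, and 67.7%, 43.5% and 2.78% for 1583 genes called lower. Among genes changed by over 2-fold they were 70.7%, 43.8% and 3.51% for 713 genes higher, and 71%, 46.8% and 3.28% for 823 genes lower. No test of these shares was made, and a match in this window is a description of its letters.

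Of 15 tested markers of beta-selected and DN4 cells, 8 rose in Lmo2tg DN2/3 libraries (53.3%, against 15.1% of all genes). A single marker, Id3, fell (6.67%, against 14.4%) and 6 were not called. The log2 fold of Id3 was -1.07 when the 4 libraries with Xist were left out. The count higher was 5 without Lmo2tg replicate 2, and 2 without the 4 libraries with Xist. Cd2, an adhesion receptor, had 84.4, 81.2, 23.6, 38 and 34.9 CPM in Lmo2tg libraries, against 2.33, 0.912, 1 and 0.751 CPM in wild-type libraries (log2 fold 5.41 ± 0.50, adjusted p = 6.62e-09). Cd8a, the CD8 alpha chain, had 45.3, 92.7, 27.6, 39.6 and 25.6 CPM in Lmo2tg libraries, against 1.26, 0.473, 0.605 and 0.536 CPM in wild-type libraries (log2 fold 6.02 ± 0.61, adjusted p = 2.66e-08). Cd8b1, the beta chain, had 19.9, 44.2, 15.9, 19.2 and 17.5 CPM in Lmo2tg libraries, against 4.13, 2.36, 2.49 and 2.26 CPM in wild-type libraries (log2 fold 3.06 ± 0.38, adjusted p = 7.94e-07). All Lmo2tg libraries exceeded wild type in the 3 genes, with replicate 2 highest for Cd8a and Cd8b1. For comparison, Cd8a at DN4 averaged 344 ± 233 CPM in Lmo2tg and 33.6 ± 16.5 CPM in wild type. Cd5, a receptor whose level follows receptor signalling and which is named after its values were seen, had 53.6, 41.8, 48.1, 48.4 and 53.1 CPM in Lmo2tg libraries, against 24.6, 17.5, 15.7 and 15 CPM in wild-type libraries (log2 fold 1.43 ± 0.33, adjusted p = 0.00173). The orphan nuclear receptors Nr4a1 and Nr4a3, immediate targets of receptor signalling also named after their values were seen, were uneven: Nr4a1, on chromosome 15, had 38, 184, 31.5, 125 and 38.6 CPM in Lmo2tg libraries, against 34.7, 21.9, 40.9 and 17.8 CPM in wild-type libraries (log2 fold 1.53 ± 0.51, adjusted p = 0.0252). Nr4a3 had 2.05, 35.9, 1.09, 23 and 1.5 CPM in Lmo2tg libraries, against 1.51, 1.08, 1.34 and 1.36 CPM in wild-type libraries (log2 fold 3.26 ± 0.91, adjusted p = 0.0074). Both were high in Lmo2tg replicates 2 and 4 and within or next to the wild-type range in replicates 1, 3 and 5. Of 20 immediate early and heat shock markers tested, 6 rose (30%, against 15.1% of all genes) and 0 fell (against 14.4%). The rises numbered 3 without Lmo2tg replicate 4 or wild-type replicate 2. The falls numbered 1 without Lmo2tg replicate 4 or wild-type replicate 4. These markers summed to 7777 to 13204 CPM in Lmo2tg and 5435 to 7965 CPM in wild type. Their part in the other results was not tested. In the list of 20 surface staging markers, which holds Cd2, Cd8a and Cd8b1, 7 rose (35%) and 3 fell (15%), with 5 falls without Lmo2tg replicate 3, and 4 rises and 1 fall without the 4 libraries with Xist. In the fit without the Xist libraries the log2 fold was 4.28 for Cd2, 4.77 for Cd8a and 2.13 for Cd8b1, and the calls ended for Cd5 (log2 fold 1.04, adjusted p = 0.349), Nr4a1 (0.74, adjusted p = 0.668) and Nr4a3 (2.16, adjusted p = 0.474). Nr4a1 also missed the threshold without any 1 of Lmo2tg replicates 2 and 4 and wild-type replicates 2 and 4 (adjusted p = 0.135, 0.062, 0.0754 and 0.0836) and in limma-voom (0.0709), and Nr4a3 in limma-voom (0.293), with a log2 fold of 2.35 without Lmo2tg replicate 2.

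Of 38 cytokine receptor genes tested 9 rose (23.7%, against 15.1% of all genes) and 5 fell (13.2%, against 14.4%). Il12rb2, a chain of the interleukin-12 receptor, had 234, 136, 146, 139 and 145 CPM in Lmo2tg libraries, against 50.2, 45.5, 46.3 and 45 CPM in wild-type libraries (log2 fold 1.78 ± 0.19, adjusted p = 8.47e-08), with 35.8% of its stretches shared with other genes. Il17re averaged 0.617 ± 0.211 CPM in Lmo2tg and 4.35 ± 0.474 CPM in wild type (log2 fold -2.81 ± 0.35, adjusted p = 7.85e-07). Csf2ra, which binds the growth factor GM-CSF, had 2.29, 0.605, 4.75, 1.94 and 9.03 CPM in Lmo2tg libraries, against 44.6, 39, 37.3 and 42.8 CPM in wild-type libraries (log2 fold -3.47 ± 0.48, adjusted p = 3.41e-06). Il7r, the interleukin-7 receptor chain that supports DN thymocytes and lies on chromosome 15, averaged 195 ± 67.6 CPM in Lmo2tg and 137 ± 24 CPM in wild type and did not pass the test (adjusted p = 0.303). In the pathway below these receptors, of 27 Jak-Stat and Socs genes tested, 6 rose (22.2%, against 15.1%) and 4 fell (14.8%, against 14.4%). Stat5a had 643, 488, 679.7, 642 and 708 CPM in Lmo2tg libraries, against 305, 270.4, 284 and 286 CPM in wild-type libraries (log2 fold 1.14 ± 0.16, adjusted p = 4.57e-06), and its neighbour Stat5b had 561, 500.1, 536, 585 and 552 CPM in Lmo2tg libraries, against 347, 328, 316 and 315 CPM in wild-type libraries (log2 fold 0.75 ± 0.09, adjusted p = 5.23e-07). Both transcription factors were higher in every Lmo2tg library. Of the feedback inhibitors that Stat5 is known to induce, Socs3 had 25.5, 17, 35.4, 31.7 and 41.4 CPM in Lmo2tg libraries, against 67, 76.1, 77.8 and 77.1 CPM in wild-type libraries (log2 fold -1.30 ± 0.21, adjusted p = 3.48e-05). Cish, named after its values were seen, had 4.02, 2.08, 6.06, 1.84 and 8.31 CPM in Lmo2tg libraries, against 18.2, 18, 24.6 and 21.1 CPM in wild-type libraries (log2 fold -2.20 ± 0.52, adjusted p = 0.00204). Both were lower in every Lmo2tg library. Leaving out the Xist libraries left 1 receptor higher and 2 lower, and in the Jak-Stat list 2 rose and 0 fell, with the calls of Cish (log2 fold -1.85, adjusted p = 0.19) and of Socs3 (adjusted p = 0.0506) lost. The log2 fold of Csf2ra was -4.09 without Lmo2tg replicate 5.

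Most cell cycle genes did not pass the test. Of 45 cell cycle genes tested 3 rose (6.67%, against 15.1% of all genes) and 1 fell (2.22%, against 14.4%). Ccnd3, the D-type cyclin of beta-selected thymocytes, had 434, 561, 483, 582 and 523 CPM in Lmo2tg libraries, against 278, 224, 242 and 234 CPM in wild-type libraries (log2 fold 1.08 ± 0.19, adjusted p = 0.000107). Ccnd2 went the other way, with 164, 98.4, 179, 89.6 and 141 CPM in Lmo2tg libraries, against 286, 300.5, 283 and 319.5 CPM in wild-type libraries (log2 fold -1.14 ± 0.30, adjusted p = 0.00431). Ccnb1, a mitotic cyclin with 14.8% of its stretches shared, had 40.6, 136, 81.8, 136 and 85.1 CPM in Lmo2tg libraries, against 53.1, 43.9, 49.4 and 51.1 CPM in wild-type libraries (log2 fold 0.96 ± 0.28, adjusted p = 0.0116). Mki67, a marker of cycling cells, had 443, 1111, 655, 831 and 504 CPM in Lmo2tg libraries, against 561, 515, 583 and 628 CPM in wild-type libraries (adjusted p = 0.294). Ccnb1 and Mki67 were highest in Lmo2tg replicates 2 and 4 and lowest in replicate 1. Of the list, 13 genes were called higher without Lmo2tg replicate 1 and 8 without replicate 5. Without the 2 shallow libraries Ccnb1 missed the threshold (log2 fold 0.82, adjusted p = 0.0568), and without the 4 libraries with Xist 0 members were called in either direction, the log2 folds of Ccnd3, Ccnd2 and Ccnb1 being 0.86, -0.99 and 0.69.

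Of 22 Cdk inhibitors and antiproliferative genes 12 rose (54.5%, against 15.1% of all genes) and 2 fell (9.09%, against 14.4%). The median log2 fold was 0.72. Cdkn1a, the inhibitor p21, went against the majority, with 0.869, 5.29, 1.92, 3.09 and 2.68 CPM in Lmo2tg libraries, against 53.5, 48.7, 66.6 and 66.6 CPM in wild-type libraries (log2 fold -4.41 ± 0.42, adjusted p = 1.16e-08). Cdkn2d, the inhibitor p19-INK4d, had 55.1, 48.2, 52.3, 57.5 and 63 CPM in Lmo2tg libraries, against 28.3, 31.2, 26.4 and 24.6 CPM in wild-type libraries (log2 fold 1.00 ± 0.14, adjusted p = 4.29e-06). Cdkn2a, the locus of p16-INK4a and p19-ARF, and Cdkn1b, the inhibitor p27, are named after their values were seen. Cdkn2a had 3.92, 5.56, 7.54, 13.3 and 5.9 CPM in Lmo2tg libraries, against 0.0585, 0.0338, 0.0228 and 0.0715 CPM in wild-type libraries (log2 fold 7.17 ± 1.10, adjusted p = 1.49e-05). Cdkn1b had 96.7, 103, 87.9, 88.4 and 93.8 CPM in Lmo2tg libraries, against 56.5, 66.2, 57.7 and 55.1 CPM in wild-type libraries (log2 fold 0.67 ± 0.15, adjusted p = 0.00114). All 5 Lmo2tg libraries lay on 1 side of wild type for each of these 4. Btg3, an antiproliferative gene, averaged 6.79 ± 2.01 CPM in Lmo2tg and 0.356 ± 0.245 CPM in wild type (log2 fold 4.27 ± 0.36, adjusted p = 1.4e-09), with 25% of its stretches shared. 4 rises and 1 fall were called with the Xist libraries left out, which ended the calls of Cdkn2a (log2 fold 6.97, adjusted p = 0.0644) and Cdkn1b (0.70, adjusted p = 0.14) and put the log2 fold of Btg3 at 5.33.

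Of 27 genes of the list of p53 and its targets 7 rose (25.9%, against 15.1% of all genes) and 5 fell (18.5%, against 14.4%). Cdkn1a was among the falls. Tnfrsf10b, a death receptor, averaged 1.3 ± 0.614 CPM in Lmo2tg and 4.41 ± 0.524 CPM in wild type (log2 fold -1.78 ± 0.31, adjusted p = 7.41e-05). Btg2 averaged 156 ± 29.9 CPM in Lmo2tg and 276 ± 22.5 CPM in wild type (log2 fold -0.82 ± 0.17, adjusted p = 0.000448). Phlda3, an inhibitor of Akt named after its values were seen, rose, with 14 ± 2.02 CPM in Lmo2tg and 6.15 ± 0.895 CPM in wild type (log2 fold 1.19 ± 0.24, adjusted p = 0.000488). Of 16 Bcl2 family genes tested 3 rose (18.8%, against 15.1% of all genes) and 4 fell (25%, against 14.4%). Bcl2, the survival factor, had 105, 84.5, 85.4, 78.1 and 114 CPM in Lmo2tg libraries, against 131, 202, 188 and 154 CPM in wild-type libraries (log2 fold -0.85 ± 0.24, adjusted p = 0.00843). Bbc3, the pro-death protein Puma, had 15.8, 16.6, 17.7, 29.1 and 24.7 CPM in Lmo2tg libraries, against 8.81, 7.18, 7.4 and 8.73 CPM in wild-type libraries (log2 fold 1.37 ± 0.30, adjusted p = 0.00102). Bcl2l2 averaged 13.8 ± 5.3 CPM in Lmo2tg and 32.2 ± 2.03 CPM in wild type (log2 fold -1.22 ± 0.22, adjusted p = 0.000153), with 10.9% of its stretches shared. Mcl1, which thymocytes depend on, averaged 276 ± 11.5 CPM in Lmo2tg and 258 ± 19.1 CPM in wild type (adjusted p = 0.668). The Bcl2 family held 1 rise without wild-type replicate 2, and none of its members in either direction without the 4 libraries with Xist, where the p53 list held 0 rises and 1 fall. The log2 fold was then -0.46 for Bcl2, 1.30 for Bbc3, -1.04 for Bcl2l2, -1.42 for Tnfrsf10b, -0.57 for Btg2 and 1.10 for Phlda3, none of them called (adjusted p = 0.58, 0.189, 0.0976, 0.0726, 0.234 and 0.146).

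Growth and metabolic genes changed in part. Of 34 genes of the Myc network and ribosome biogenesis 2 rose (5.88%) and 1 fell (2.94%), below the shares among all genes. These 3 lay close to the threshold. Mycn averaged 13 ± 2.85 CPM in Lmo2tg and 19.5 ± 1.23 CPM in wild type (log2 fold -0.58 ± 0.21, adjusted p = 0.0339). Bop1, on chromosome 15, had 201 ± 37.7 CPM in Lmo2tg and 132 ± 18 CPM in wild type (log2 fold 0.61 ± 0.22, adjusted p = 0.0394). Polr1d averaged 122 ± 17.6 CPM in Lmo2tg and 100.1 ± 3.74 CPM in wild type (log2 fold 0.28 ± 0.10, adjusted p = 0.0389). Mycn missed it without any 1 of Lmo2tg replicates 1 and 5 and wild-type replicates 1, 2 and 3 (adjusted p = 0.0851, 0.0824, 0.0838, 0.0665 and 0.0558). Bop1 missed it without any 1 of Lmo2tg replicates 2, 3 and 4 and wild-type replicates 2, 3 and 4 (0.102, 0.0529, 0.0845, 0.126, 0.0792 and 0.0658). Polr1d missed it without any 1 of Lmo2tg replicates 2 and 4 and wild-type replicates 1, 2, 3 and 4 (0.155, 0.0613, 0.0574, 0.104, 0.0644 and 0.083). Without any 1 of these libraries the list held 0 to 2 rises and 0 or 1 falls, and without the 4 libraries with Xist 0 of either (log2 folds -0.78 for Mycn, 0.34 for Bop1 and 0.14 for Polr1d). Without the 2 shallow Lmo2tg libraries Mycn and Bop1 missed it as well (adjusted p = 0.0814 and 0.0747). Myc itself, also on chromosome 15, averaged 296 ± 30.5 CPM in Lmo2tg and 364 ± 47.8 CPM in wild type (adjusted p = 0.257).

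Of 29 glycolysis and glucose transport genes tested 9 rose (31%, against 15.1% of all genes) and 4 fell (13.8%, against 14.4%). Mpc1, a subunit of the mitochondrial pyruvate carrier, averaged 28.5 ± 4.78 CPM in Lmo2tg and 11.8 ± 0.692 CPM in wild type (log2 fold 1.27 ± 0.16, adjusted p = 8.69e-07). Pgk1, a glycolytic kinase, had 388 ± 78.9 CPM in Lmo2tg and 193 ± 14.3 CPM in wild type (log2 fold 1.01 ± 0.15, adjusted p = 1.53e-05). Of their stretches 16.4% and 51.6% are shared with other genes. Hk3, a hexokinase of myeloid cells, averaged 0.0446 ± 0.0449 CPM in Lmo2tg and 0.924 ± 0.464 CPM in wild type (log2 fold -4.21 ± 0.76, adjusted p = 0.000126). Of 21 serine and one-carbon genes tested 7 rose (33.3%, against 15.1%) and 0 fell (against 14.4%). Atf4, the amino acid response factor on chromosome 15, had 312, 488, 358, 472 and 312 CPM in Lmo2tg libraries, against 259, 218, 242 and 201 CPM in wild-type libraries (log2 fold 0.76 ± 0.16, adjusted p = 0.000676). Slc7a11, the cystine transporter, had 8.27, 9.54, 6.04, 10.5 and 8.19 CPM in Lmo2tg libraries, against 1.29, 2.09, 1.71 and 1.64 CPM in wild-type libraries (log2 fold 2.34 ± 0.41, adjusted p = 9.7e-05), and its partner chain Slc3a2 had 152, 253, 173, 212 and 192 CPM in Lmo2tg libraries, against 116, 90.7, 100.4 and 95.3 CPM in wild-type libraries (log2 fold 0.97 ± 0.17, adjusted p = 8.75e-05). The 3 genes were higher in every Lmo2tg library, and replicates 2 and 4 were the highest in each. The count of rises was 4 without wild-type replicate 3 or 4, and without the 4 libraries with Xist 0 serine genes were called, and 2 glycolysis genes rose and 2 fell. The calls that ended there were those of Pgk1 (log2 fold 0.78, adjusted p = 0.0831), Atf4 (0.48, adjusted p = 0.327), Slc7a11 (2.67, adjusted p = 0.0526) and Slc3a2 (0.65, adjusted p = 0.195). The log2 fold of Hk3 was -4.87 without Lmo2tg replicate 1.

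Of 29 cholesterol synthesis genes 5 rose (17.2%, against 15.1% of all genes) and 6 fell (20.7%, against 14.4%). Of the stretches of Idi1 21.8% are shared with other genes. Idi1, an isomerase of the pathway, averaged 72.2 ± 11.7 CPM in Lmo2tg and 31.5 ± 6.24 CPM in wild type (log2 fold 1.20 ± 0.22, adjusted p = 0.00012). Mylip, which degrades the LDL receptor, averaged 59.9 ± 7.05 CPM in Lmo2tg and 31.3 ± 4.75 CPM in wild type (log2 fold 0.94 ± 0.17, adjusted p = 0.000104). Dhcr7, the last reductase, averaged 87.8 ± 10.8 CPM in Lmo2tg and 126 ± 6.21 CPM in wild type (log2 fold -0.52 ± 0.10, adjusted p = 0.000286). The count of falls was 3 without any 1 of Lmo2tg replicates 1, 2, 3 and 5 and wild-type replicates 3 and 4, and that of rises 3 without wild-type replicate 2 or 3. With the Xist libraries left out 2 cholesterol genes rose and 0 fell, and the calls ended for Mylip (log2 fold 0.94, adjusted p = 0.0612) and Dhcr7 (-0.51, adjusted p = 0.0576).

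Among the listed interferon response and MHC class I genes, those that changed were lower, with the exception of H2-T10. This is a nonclassical class I gene named after its values were seen. It lies in a run of 8 neighbouring genes called higher (chr17:36055816-36190151). The run also holds H2-Bl and H2-T3, which stand outside the lists, so class I genes did not all fall. Of 41 interferon response genes tested 0 rose and 8 fell (19.5%, against 14.4% of all genes), with a median log2 fold of -0.46. Ifi44 had 0.105, 0.0865, 0, 0 and 0 CPM in Lmo2tg libraries, against 3.53, 7.45, 7.35 and 7.9 CPM in wild-type libraries (log2 fold -7.07 ± 0.85, adjusted p = 4.31e-07). Dhx58, the RNA sensor LGP2, had 14.6, 9.17, 13.2, 8.34 and 10.7 CPM in Lmo2tg libraries, against 26.4, 28, 27.9 and 23.6 CPM in wild-type libraries (log2 fold -1.24 ± 0.25, adjusted p = 0.000443). Iigp1, an immunity-related GTPase, had 1.46, 1.33, 3.87, 0 and 1.26 CPM in Lmo2tg libraries, against 9.2, 14.4, 14.5 and 11.9 CPM in wild-type libraries (log2 fold -2.94 ± 0.66, adjusted p = 0.00131). Each Lmo2tg library lay below each wild-type library in the 3 genes, as the ranking by fold that named Ifi44 required of it. Of 21 genes of MHC class I and peptide loading 1 rose (4.76%, against 15.1% of all genes) and 6 fell (28.6%, against 14.4%). H2-K1, a classical class I heavy chain, had 196, 274, 271, 198 and 239 CPM in Lmo2tg libraries, against 653, 651, 636 and 715 CPM in wild-type libraries (log2 fold -1.49 ± 0.26, adjusted p = 6.35e-05). H2-D1, another, had 52.8, 49.8, 52.5, 37.5 and 66.5 CPM in Lmo2tg libraries, against 159.6, 120.4, 132 and 131 CPM in wild-type libraries (log2 fold -1.39 ± 0.23, adjusted p = 5.18e-05). Tap1, a peptide transporter, had 123, 123, 142, 144 and 144 CPM in Lmo2tg libraries, against 215, 196, 189.6 and 189.7 CPM in wild-type libraries (log2 fold -0.55 ± 0.11, adjusted p = 0.000552). Nlrc5, the transactivator of class I genes named after its values were seen, averaged 29.1 ± 4.1 CPM in Lmo2tg and 67.9 ± 3.28 CPM in wild type (log2 fold -1.22 ± 0.34, adjusted p = 0.00729), while B2m, the class I light chain, averaged 930.2 ± 204 CPM in Lmo2tg and 899 ± 62 CPM in wild type (adjusted p = 0.896). In Ldb1-KO libraries the same genes averaged 745 ± 83.1 CPM for H2-K1, 162 ± 14.7 for H2-D1 and 8.95 ± 3.37 for Ifi44. Of their 101-base stretches 0.905% in H2-K1, 3.55% in H2-D1 and 1.91% in Tap1 are shared with other genes, against 27.9% in H2-T10, whose value is uncertain. The log2 fold of H2-T10 was 0.80 when the 4 libraries with Xist were left out. The interferon list held 4 falls without the 2 shallow Lmo2tg libraries, and without the 4 libraries with Xist 1 interferon gene and 4 class I genes fell, with the calls of Dhx58 (log2 fold -1.17, adjusted p = 0.0954), Iigp1 (-2.44, adjusted p = 0.169) and Nlrc5 (-1.39, adjusted p = 0.151) lost. Nlrc5 also missed the threshold without the 2 shallow libraries (adjusted p = 0.0513). The log2 fold of Ifi44 was -7.77 without Lmo2tg replicate 1, and that of Iigp1 -3.58 without replicate 3.

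Other families of surface and signalling genes are set beside the shares of all genes, 15.1% higher and 14.4% lower. Of 31 homing and egress genes tested 8 rose (25.8%) and 5 fell (16.1%). Itgb7, an integrin beta chain of gut-homing cells on chromosome 15, had 202, 80.4, 194, 33.7 and 129.5 CPM in Lmo2tg libraries, against 8.82, 9.78, 7.79 and 10.1 CPM in wild-type libraries (log2 fold 3.81 ± 0.52, adjusted p = 2.91e-06). Itgae, the alpha chain that pairs with it, had 2.71, 1.24, 1.25, 1.08 and 0.843 CPM in Lmo2tg libraries, against 7.57, 16.4, 19.3 and 13.8 CPM in wild-type libraries (log2 fold -3.30 ± 0.46, adjusted p = 4.16e-06). The 2 chains of this integrin thus moved in opposite directions. S1pr3, a sphingosine phosphate receptor, averaged 0.122 ± 0.125 CPM in Lmo2tg and 3.41 ± 0.905 CPM in wild type (log2 fold -4.72 ± 0.58, adjusted p = 6.86e-07). Of 33 costimulatory and inhibitory receptor genes 6 rose (18.2%) and 6 fell (18.2%), near the background. Slamf1 had 29.1, 40.2, 35.6, 34.7 and 31.7 CPM in Lmo2tg libraries, against 5.41, 7.36, 7.71 and 5.35 CPM in wild-type libraries (log2 fold 2.41 ± 0.26, adjusted p = 8.19e-08). Cd96 had 35.9, 53.2, 50, 38.2 and 30.5 CPM in Lmo2tg libraries, against 112, 137, 118 and 102 CPM in wild-type libraries (log2 fold -1.49 ± 0.27, adjusted p = 0.000129). Cd81, a tetraspanin, averaged 38.5 ± 18.1 CPM in Lmo2tg and 5.91 ± 1.4 CPM in wild type (log2 fold 2.70 ± 0.36, adjusted p = 1.95e-06). Leaving out the libraries with Xist, 2 homing genes rose and 2 fell, and 3 costimulatory genes rose and 2 fell, with a log2 fold of -2.34 for Itgae. That of S1pr3 was -5.49 without Lmo2tg replicate 2.

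Of 39 calcium and ion channel genes 7 rose (17.9%) and 7 fell (17.9%), near the 15.1% and 14.4% of all genes. P2rx7, an ATP-gated channel, had 128, 56.8, 93.8, 40 and 98.8 CPM in Lmo2tg libraries, against 1.73, 2.48, 2.6 and 1.61 CPM in wild-type libraries (log2 fold 5.31 ± 0.60, adjusted p = 1.56e-07). Itpr1, a calcium release channel, had 83.5, 93.3, 108, 91.1 and 101 CPM in Lmo2tg libraries, against 159, 199.5, 191 and 197 CPM in wild-type libraries (log2 fold -0.97 ± 0.10, adjusted p = 3.45e-08). Cacnb3, a calcium channel subunit on chromosome 15, averaged 15 ± 5.5 CPM in Lmo2tg and 2.49 ± 0.589 CPM in wild type (log2 fold 2.59 ± 0.34, adjusted p = 1.59e-06). The release channels Ryr2 and Itpr1 thus went opposite ways. Of 31 semaphorin, ephrin and guidance genes tested 11 rose (35.5%) and 7 fell (22.6%). Plxna3, a semaphorin receptor, averaged 38.9 ± 2.9 CPM in Lmo2tg and 22.1 ± 2.29 CPM in wild type (log2 fold 0.81 ± 0.13, adjusted p = 3.56e-05). Sema7a averaged 7.68 ± 2.16 CPM in Lmo2tg and 19.6 ± 3.43 CPM in wild type (log2 fold -1.36 ± 0.25, adjusted p = 0.000129). Ntn4, a netrin, was rare, with 256 counts in Lmo2tg and 2 in wild type, a ratio of 148 (95% counting interval 40.7 to 1232). When the Xist libraries were left out 4 channel genes rose and 4 fell, and 0 guidance genes rose and 1 fell, with the calls of Plxna3 (log2 fold 0.74, adjusted p = 0.0657) and Ntn4 (4.56, adjusted p = 0.199) lost.

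Of 41 Wnt, TGF-beta and Hedgehog genes 10 rose (24.4%, against 15.1% of all genes) and 5 fell (12.2%, against 14.4%). Wnt5b, a Wnt ligand, had 20.1, 29.3, 41.1, 36.1 and 24.8 CPM in Lmo2tg libraries, against 2.14, 1.77, 4.83 and 2.58 CPM in wild-type libraries (log2 fold 3.41 ± 0.34, adjusted p = 2.69e-08). Axin2, a target of canonical Wnt signalling, had 28.7, 28.4, 41.4, 48.7 and 39.3 CPM in Lmo2tg libraries, against 13.4, 10.1, 11 and 11.1 CPM in wild-type libraries (log2 fold 1.71 ± 0.18, adjusted p = 3.83e-08). Fzd6, a Wnt receptor on chromosome 15, averaged 0.0281 ± 0.0353 CPM in Lmo2tg and 3.39 ± 1.37 CPM in wild type (log2 fold -6.56 ± 0.80, adjusted p = 5.27e-07), and was a fall among the many rises of that chromosome. Of 35 Dusp, Spry and MAP kinase feedback genes 9 rose (25.7%, against 15.1%) and 4 fell (11.4%, against 14.4%). Dusp2, a nuclear phosphatase, averaged 172 ± 38.7 CPM in Lmo2tg and 80.8 ± 16.3 CPM in wild type (log2 fold 1.09 ± 0.21, adjusted p = 0.000325). Dusp7 averaged 30.6 ± 4.87 CPM in Lmo2tg and 18.1 ± 2.41 CPM in wild type (log2 fold 0.75 ± 0.16, adjusted p = 0.000592). Spry2, an inhibitor of receptor tyrosine kinase signalling, averaged 0.0763 ± 0.122 CPM in Lmo2tg and 3.29 ± 0.131 CPM in wild type (log2 fold -5.29 ± 0.75, adjusted p = 5e-06). The count of rises in this list was 5 without any 1 of Lmo2tg replicates 2 and 4 and wild-type replicate 2. Of 36 Polycomb, trithorax and DNA methylation genes 7 rose (19.4%, against 15.1%) and 5 fell (13.9%, against 14.4%). Their rises numbered 4 without wild-type replicate 2 or 3. Tet2, a dioxygenase of methylated cytosine, had 4.21, 4.92, 15.5, 5.35 and 6.65 CPM in Lmo2tg libraries, against 26.7, 34, 31.2 and 31.1 CPM in wild-type libraries (log2 fold -2.06 ± 0.38, adjusted p = 0.000153), while Cbx7, on chromosome 15, averaged 77 ± 20.2 CPM in Lmo2tg and 37.8 ± 3.94 CPM in wild type (log2 fold 1.03 ± 0.21, adjusted p = 0.00045). Ezh1 averaged 57.4 ± 12.8 CPM in Lmo2tg and 92.8 ± 2.73 CPM in wild type (log2 fold -0.69 ± 0.16, adjusted p = 0.00162). Without the 4 libraries with Xist 4 genes of the Wnt list rose and 3 fell, 0 and 1 of the Dusp list, and 0 of the Polycomb list in either direction. The calls that ended were those of Dusp2 (log2 fold 0.96, adjusted p = 0.126), Dusp7 (0.67, adjusted p = 0.165), Tet2 (-1.75, adjusted p = 0.082), Cbx7 (0.94, adjusted p = 0.128) and Ezh1 (-0.56, adjusted p = 0.199). Without Lmo2tg replicate 2 the log2 fold was -7.40 for Fzd6 and -7.25 for Spry2.

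The Gimap GTPases, expressed in lymphocytes, lie in 1 cluster on chromosome 6. Of 8 tested 3 rose (37.5%, against 15.1% of all genes) and 0 fell (against 14.4%). Gimap3 averaged 4.27 ± 3.67 CPM in Lmo2tg and 0.212 ± 0.172 CPM in wild type (log2 fold 4.29 ± 0.83, adjusted p = 0.000263). Gimap8 averaged 52.6 ± 44.8 CPM in Lmo2tg and 11.9 ± 3.16 CPM in wild type (log2 fold 2.15 ± 0.51, adjusted p = 0.00223), and in both the highest library was Lmo2tg replicate 1. Gimap9 (107 ± 29.1 CPM in Lmo2tg and 73.7 ± 6.43 CPM in wild type) lay at the threshold (adjusted p = 0.048) and missed it without any 1 of Lmo2tg replicates 1, 3 and 5 and of the 4 wild-type libraries (adjusted p = 0.168, 0.0655, 0.069, 0.122, 0.0618, 0.0847 and 0.0963). Of 17 imprinted and fetal growth genes tested 7 rose (41.2%, against 15.1%) and 3 fell (17.6%, against 14.4%). Igf2r, a receptor that clears the growth factor IGF2, had 182, 210.0, 233, 222 and 200.4 CPM in Lmo2tg libraries, against 88.7, 88.3, 94.1 and 97.3 CPM in wild-type libraries (log2 fold 1.19 ± 0.10, adjusted p = 5.19e-10). Plagl1, an imprinted zinc finger factor, had 4.31, 10.9, 10.4, 26 and 8.19 CPM in Lmo2tg libraries, against 0.234, 0.203, 0.194 and 0.197 CPM in wild-type libraries (log2 fold 5.84 ± 0.62, adjusted p = 6.96e-08). H19, an imprinted noncoding RNA named after its values were seen, fell, with 20.7, 9.07, 2.76, 3.35 and 6.41 CPM in Lmo2tg libraries, against 70.8, 157, 243 and 151 CPM in wild-type libraries (log2 fold -4.19 ± 0.75, adjusted p = 0.000124). Without the 4 libraries with Xist 6 genes of this list rose and 0 fell, and 0 Gimap genes were called, with the calls of Gimap3 (log2 fold 5.07, adjusted p = 0.0736), Gimap8 (2.74, adjusted p = 0.109) and H19 (-3.08, adjusted p = 0.0835) lost. Without Lmo2tg replicate 1, the highest library, the log2 fold was 3.62 for Gimap3 and 1.48 for Gimap8, and -4.84 for H19. Gimap3 had 5.04 without wild-type replicate 3 and missed the threshold in limma-voom (adjusted p = 0.0506).

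**Figure D4:**
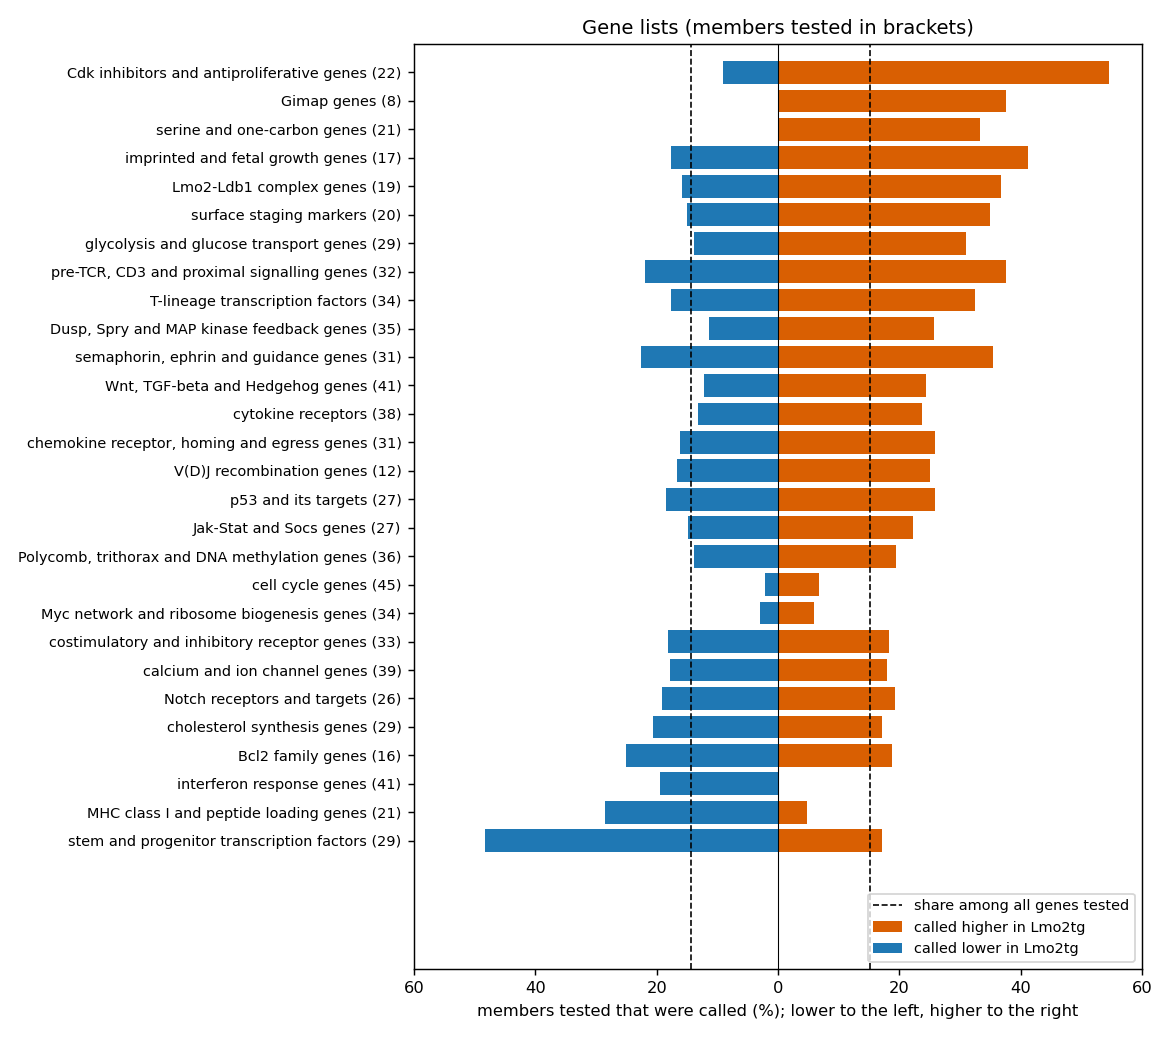
Each bar gives the share of a list's tested members called higher (orange, to the right) or lower (blue, to the left) in Lmo2tg, with the number tested in brackets, and dashed lines mark the shares among all 14371 genes, 15.1% and 14.4%. Lists run from Cdk inhibitors and antiproliferative genes, with 54.5% higher and 9.09% lower, to stem and progenitor transcription factors, with 17.2% higher and 48.3% lower.

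Markers of other cells that the sorted fraction could hold were summed in each library. The shares of their tested members called stand beside the 15.1% higher and 14.4% lower of all genes. Haemoglobin genes, Pf4 and Ppbp of megakaryocytes, Fcer1a and Ms4a2 of mast cells and basophils, Ncr1 of NK cells and Pax5 of B cells had no count in any of the 9 libraries. Cpa3, carboxypeptidase A3, stands in the mast cell and basophil list and is also transcribed in early progenitors. It had 767, 378, 862, 462 and 745 CPM in Lmo2tg libraries, against 60.2, 106, 101 and 97.2 CPM in wild-type libraries (log2 fold 2.82 ± 0.83, adjusted p = 0.0113). All Lmo2tg libraries exceeded all wild-type libraries, as the ranking by CPM that named Cpa3 required. Of the 10 genes of that list 3 were tested, 2 rose (66.7%, Cpa3 and Hdc) and 5 had no count. Hdc averaged 1.24 ± 0.553 CPM in Lmo2tg and 0.533 ± 0.18 CPM in wild type. Neither was called without the 4 libraries with Xist (adjusted p = 0.252 for Cpa3 and 0.389 for Hdc). The list summed to 379 to 864 CPM in Lmo2tg and 60.7 to 106 CPM in wild type, nearly all of it Cpa3. Dendritic cell markers summed to 90.1 to 192 CPM in Lmo2tg and 254 to 268 CPM in wild type (1 rose and 1 fell of 10 tested, 10% each). B cell markers summed to 41.4 to 70.1 CPM in Lmo2tg and 75 to 85.3 CPM in wild type (2 rose and 2 fell of 15, 13.3% each). Myeloid markers summed to 28.6 to 39.6 CPM in Lmo2tg and 30.7 to 39.1 CPM in wild type (6 and 1 of 11, 54.5% and 9.09%). NK and innate lymphoid markers summed to 156 to 257 CPM in Lmo2tg and 209 to 257 CPM in wild type (3 and 1 of 13, 23.1% and 7.69%). Gamma-delta T cell markers summed to 222 to 413 CPM in Lmo2tg and 205 to 218 CPM in wild type (2 and 1 of 6, 33.3% and 16.7%). Erythroid markers summed to 322 to 639.6 CPM in Lmo2tg and 215 to 345 CPM in wild type (2 and 1 of 8, 25% and 12.5%). Megakaryocyte markers summed to 3.46 to 5.42 CPM in Lmo2tg and 5.89 to 7.62 CPM in wild type (1 and 2 of 3, 33.3% and 66.7%). Thymic stroma markers summed to 178 to 307 CPM in Lmo2tg and 232 to 262 CPM in wild type (0 and 1 of 8, 0% and 12.5%). The ranges of the summed levels did not overlap for the mast cell, dendritic cell, B cell, gamma-delta, megakaryocyte and mature T cell lists, and their part in the other results was not tested. Mature T cell markers summed to 1193 to 2012 CPM in Lmo2tg and 867 to 1188 CPM in wild type (4 rose and 0 fell of 12, 33.3% and 0%). Double-positive thymocyte markers summed to 2107 to 2750.3 CPM in Lmo2tg and 2292 to 2742 CPM in wild type (6 and 3 of 13, 46.2% and 23.1%). Several of these counts rested on 1 library. Without Lmo2tg replicate 2 the falls were 3 myeloid, 2 NK and 2 dendritic cell markers, 1 B cell and 1 megakaryocyte marker, and the rises 0 dendritic cell markers and 1 erythroid marker. The B cell falls were 1 also without Lmo2tg replicate 4 or wild-type replicate 1, 2 or 3, and the mast cell rises 1 without Lmo2tg replicate 1 or 3 or wild-type replicate 1, 3 or 4. The dendritic cell rises were 0 also without Lmo2tg replicate 1 or any 1 wild-type library, and the falls 0 without Lmo2tg replicate 3 or 4 or wild-type replicate 2. The gamma-delta rises were 1 without Lmo2tg replicate 1, 2, 3 or 4 or wild-type replicate 1 and 0 without any other library. The erythroid rises were 1 also without Lmo2tg replicate 4 or wild-type replicate 1, the megakaryocyte falls 1 also without Lmo2tg replicate 3 or wild-type replicate 2, and the stroma falls 2 without Lmo2tg replicate 5. Of all markers of other cells, the fit without the Xist libraries called 1 B cell, 1 mature T cell and 3 double-positive markers higher, and 1 double-positive and 1 stroma marker lower. The immediate early genes then numbered 0 in either direction. Of the 5 sex-linked genes 0 passed the test. In sorted bulk RNA, a change in the number of cells of a type and a change in RNA per cell cannot be told apart.

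Chromosome 15 differed from every other chromosome. Of its 539 tested genes 252 were called higher (46.8%) and 32 lower (5.94%), (43 higher without the 4 libraries with Xist), whereas on the other 19 chromosomes 11% to 16.9% of genes were higher and 12.2% to 17.4% lower. Over genes of at least 5 CPM in wild type, the median difference in log2(CPM + 0.5) from the wild-type mean on this chromosome was 0.28, 0.50, 0.57, 0.60 and 0.32 in Lmo2tg replicates 1 to 5, and between -0.03 and 0.05 in wild-type libraries. On the other chromosomes the medians of Lmo2tg libraries stayed between -0.20 and 0.19. The rise ran along the whole chromosome, with a median log2 fold between 0.42 and 0.67 in each of 6 consecutive 20 Mb windows. In Lmo2tg DN4 libraries the medians were 0.03, 0.35, 0.41, 0.53 and 0.20, and in Ldb1-KO DN2/3 libraries 0.20, -0.11, 0.21, 0.02 and -0.07. DNA copy number was not measured. Outside chromosome 15, 3958 genes were called, 1923 higher and 2035 lower. Named rises on this chromosome, among them Lalba, Tuba1c, Lgals1, Ywhaz, Bop1, Atf4, Itgb7, Cacnb3 and Cbx7, stand beside this shift.

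**Figure D5:**
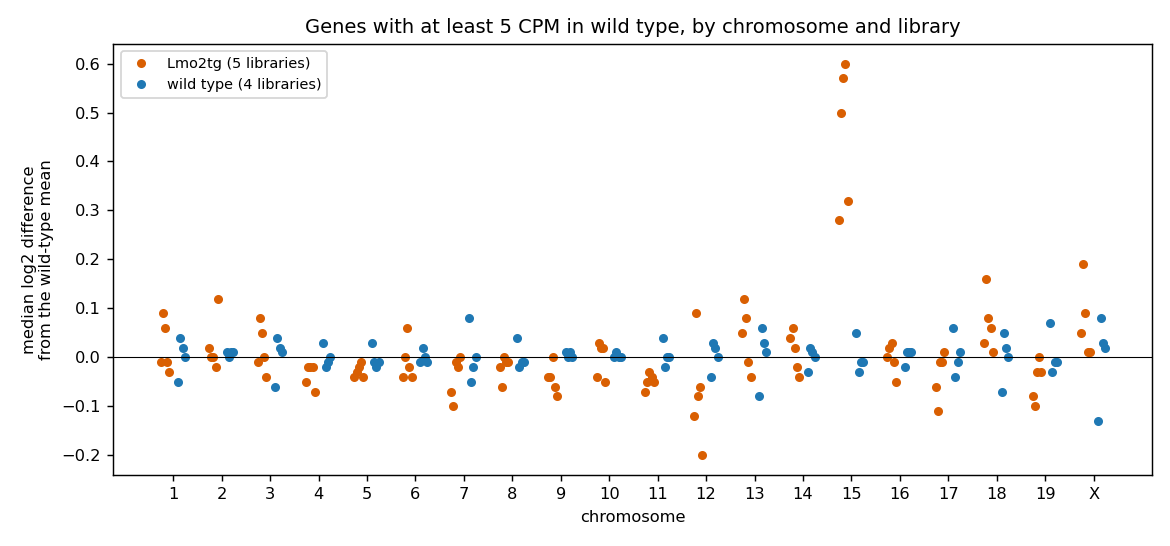
Each point is the median difference in log2(CPM + 0.5) of 1 DN2/3 library from the wild-type mean, over genes of at least 5 CPM in wild type on that chromosome, with the 5 Lmo2tg libraries in orange left of the 4 wild-type libraries in blue. Chromosome 15 stands apart, with Lmo2tg libraries between 0.28 and 0.60.

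Shared sequence moved with direction too. Genes whose transcripts share over 50% of their 101-base stretches with other genes numbered 340 among those tested, of which 25.9% were higher and 7.94% lower, against 15% and 15.6% of the 8156 genes with no shared stretch. How the authors' counting treated reads that match several genes is not stated in the labels. Among the named genes 16 share over 10%, and the shares printed beside them mark values that are uncertain.

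Lmo2tg libraries were not alike. In 80 of the 2175 genes called higher (3.68%) 1 library held more than the other 4 together, 23 of them in replicate 1, 20 in replicate 2, 7 in replicate 3, 8 in replicate 4 and 22 in replicate 5. Replicates 2 and 4 shared the highest Nr4a1, Nr4a3, Trib1, Mki67 and Ccnb1 and the lowest Lyl1, Nfe2, Cd93 and Itgb7. Trib1, on chromosome 15 and named after its values were seen, had 40.7, 163, 42.2, 161 and 50 CPM in Lmo2tg libraries, against 12.2, 10.5, 14 and 8.58 CPM in wild-type libraries (log2 fold 3.01 ± 0.52, adjusted p = 7.55e-05), without passing the test when the Xist libraries were left out (adjusted p = 0.116). These replicates are labelled only by number, and they differ in depth (74.13 and 31.28 M counts).

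The libraries of the DN4 subset gave a second reading of the transgene in separate libraries. Of the 2175 genes called higher at DN2/3, 1919 (88.2%) were also higher at DN4 by their fitted fold and 1505 (69.2%) were called there in the same direction. Of the 2067 called lower, 1484 (71.8%) were lower at DN4 and 888 (43%) were called. Over all genes, 53.7% had a higher and 46.3% a lower fitted level in Lmo2tg at DN4, where 28.9% were called higher and 23.5% lower. The effect itself differed between the stages (interaction, adjusted p below 0.05) for 489 of the rises and 721 of the falls, and for 25.6% of all genes. Lmo2 was 1 of these (difference of log2 folds, DN2/3 minus DN4, -2.22 ± 0.50, adjusted p = 0.00375), with 45.1 ± 13.5 CPM in Lmo2tg and 0.0778 ± 0.0708 CPM in wild type at DN4. Same-numbered Lmo2tg libraries of the 2 subsets deviated together (r across genes 0.48 to 0.61), so they may not be independent of each other. The interaction took no account of such pairs, and no fit with them was made for it.

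The named genes were chosen for their change at DN2/3, so more and larger differences there than over all genes (25.6%) follow from the choice, and their counts are a description. Among the 118 named genes the effect differed between the stages for 63, of which 38 fell at DN2/3 with a fold below that at DN4, 18 rose by more at DN2/3 and 7, Lmo2, Lyl1, Cpa3, Slc7a11, Mylip, Dpp4 and Dusp2, rose by less. In 6 of the 63, all lower at DN2/3, the call at DN4 was in the opposite direction: Bcl2, Socs3, Mycn, S1pr3, Pag1 and Ezh1. Bcl2 averaged 79.3 ± 38.1 CPM in Lmo2tg and 32.1 ± 7.23 CPM in wild type at DN4 (log2 fold 1.30, adjusted p = 0.000169). Socs3 averaged 14.2 ± 3.78 CPM in Lmo2tg and 7.85 ± 1.83 CPM in wild type there (log2 fold 0.85, adjusted p = 0.00235). Both rose at DN4 while they fell at DN2/3. S1pr3 held the most negative difference (difference of log2 folds, DN2/3 minus DN4, -8.33 ± 1.04, adjusted p = 1.93e-05), at levels close to the floor at DN4. Npas2 came next (difference of log2 folds, DN2/3 minus DN4, -7.78 ± 0.99, adjusted p = 2.24e-05), with 0.417 ± 0.227 CPM in Lmo2tg and 0.282 ± 0.0793 CPM in wild type at DN4.

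The class I gene H2-K1, the receptor Notch3 and Cd3g were among the genes whose fall was deeper at DN2/3. H2-K1 averaged 223 ± 158 CPM in Lmo2tg and 178 ± 10.7 CPM in wild type at DN4 and did not pass the test there (difference of log2 folds, DN2/3 minus DN4, -1.82 ± 0.36, adjusted p = 0.00148). Notch3 averaged 144 ± 45.7 CPM in Lmo2tg and 118 ± 6.53 CPM in wild type at DN4 (difference of log2 folds, DN2/3 minus DN4, -1.58 ± 0.28, adjusted p = 0.000567). Cd3g averaged 443 ± 78 CPM in Lmo2tg and 443 ± 15.5 CPM in wild type at DN4 (difference of log2 folds, DN2/3 minus DN4, -1.45 ± 0.17, adjusted p = 1.29e-05). At DN4 the SD of the Lmo2tg libraries exceeded that of wild type in all 3. Ptcra remained lower in Lmo2tg at DN4, 25.9 ± 12 CPM in Lmo2tg and 60.9 ± 10.2 CPM in wild type, by a smaller fold (difference of log2 folds, DN2/3 minus DN4, -1.25 ± 0.40, adjusted p = 0.0249). Of the genes higher at DN2/3, Cd8a rose at both stages and by more at DN2/3 (difference of log2 folds, DN2/3 minus DN4, 2.66 ± 0.69, adjusted p = 0.00892), whereas Lyl1, with 39.1 ± 27.2 CPM in Lmo2tg and 0.303 ± 0.17 CPM in wild type at DN4, rose by more at DN4 (difference of log2 folds, DN2/3 minus DN4, -3.44 ± 0.86, adjusted p = 0.00735). Tcf7 had a higher fold at DN2/3, with 3058 ± 219 CPM in Lmo2tg and 3282 ± 141 CPM in wild type at DN4 (difference of log2 folds, DN2/3 minus DN4, 0.64 ± 0.11, adjusted p = 0.000496).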

How the data were processed

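RNA from mouse thymocytes was sequenced with a TruSeq RNA V2 kit as paired-end reads of 101 bases, per the labels' protocols. The submitters' processing notes name mm10, STAR 2.5.2a and featureCounts 1.4.6-p3. The authors deposited raw counts per gene symbol for all 28 libraries in 1 table; each column was matched to its sample through the library name given as that sample's description. The strand setting and the treatment of reads matching several genes are not stated in the labels.

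A quasi-likelihood model in edgeR 4.0.16 (R 4.3.3, robust, TMM, filterByExpr) held the 28 libraries as 6 groups. The contrast of Lmo2tg over wild type at DN2/3 was tested by a two-sided F-test with Benjamini-Hochberg adjustment over 14371 genes, and a gene is called at an adjusted p below 0.05. Levels are CPM with TMM-scaled library sizes. The script was tested on simulated data. Positions (13686 genes matched) and promoters are from RefSeq GRCm38.p6, and shared 101-base stretches from GENCODE M21 transcripts (13688 genes). Counting intervals and floors cover counting error only. All replicate pairs differed by more than sampling noise.

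The rule for named genes took the transgene and its partner Ldb1, then 12 genes per direction with the largest folds among called genes whose groups do not overlap and whose higher group averages 5 CPM or more, the 8 largest differences in CPM in each direction among those of over 2-fold, and up to 3 called members with the smallest adjusted p of each of 28 lists; predicted genes and receptor segments were left out. Of the genes the rule named, 1 is not reported here. The members and lists were chosen with earlier results of these data known. Alternatives were other normalizations, filters, sample sets, DESeq2 1.42.0, limma-voom (limma 3.58.1), a replicate block and leaving out each library; leaving out the 4 libraries with Xist, leaving out the 2 shallow libraries and counting outside chromosome 15 were chosen after seeing the data.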

Additional observations from a re-analysis of the deposited data

Results flagged for a closer look

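Among 236 groups of 4 or 5 libraries, 1 for each named gene and genotype, 23 held a library that stood apart from the rest by Dixon's criterion, where chance alone gives about 1 in 20 for spread-out values. The criterion is met by any count at all where every other library is at 0, as for Mira and Hoxa3 in Lmo2tg and Ntn4 and Sobp in wild type, so those carry no such rate. In Lmo2tg, replicate 2 was the highest for Mira (0.101 CPM, all others 0), Adam11 (1.82 CPM, others 0.0549 to 0.263), Wdfy4 (5.3 CPM, others 0.124 to 0.619), Hoxa3 (0.0288 CPM, others 0), Cd8b1 (44.2 CPM, others 15.9 to 19.9) and Spry2 (0.288 CPM, others up to 0.0656). Replicate 1 was the highest for Il12rb2 (234 CPM, others 136 to 146), Itgae (2.71 CPM, others 0.843 to 1.25) and Gimap8 (130 CPM, others 22.5 to 53.4), replicate 3 for Tet2 (15.5 CPM, others 4.21 to 6.65) and replicate 5 for Thsd4 (36.7 CPM, others 0.0549 to 5.87) and Fam184a (0.662 CPM, others up to 0.0288).

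In wild type, replicate 1 stood apart for Ifi44 (3.53 CPM, others 7.35 to 7.9), Socs3 (67 CPM, others 76.1 to 77.8), Hoxa3 (2.47 CPM, others 1.84 to 1.91), Cd2 (2.33 CPM, others 0.751 to 1), Cd8a (1.26 CPM, others 0.473 to 0.605), Cd8b1 (4.13 CPM, others 2.26 to 2.49) and Ntn4 (0.0293 CPM, others 0). It is the wild-type library without Xist. Replicate 2 stood apart for Srp54b (0.372 CPM, others 0.00894 to 0.0343) and Cmah (531 CPM, others 354 to 370), replicate 3 for Gimap3 (0.468 CPM, others 0.101 to 0.146) and replicate 4 for Sobp (0.0179 CPM, others 0).

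The effect of the transgene differed between the stages for 63 of the 118 named genes, by the interaction in the edgeR fit (adjusted p = 1.29e-05 to 0.0422), against 25.6% of all genes. The named genes were chosen for their change at DN2/3, so an excess of larger effects there follows from the choice. Values are the difference of log2 folds, DN2/3 minus DN4. Among genes that fell at DN2/3 it was -1.45 for Cd3g, -2.56 for Mycn, -8.33 for S1pr3, -7.78 for Npas2, -2.16 for Socs3, -1.43 for Pag1, -2.16 for Bcl2, -1.34 for Ppt1, -1.58 for Notch3, -4.35 for Ica1, -3.46 for Itgae, -0.75 for Itpr1 and -4.36 for Adam11. In the same set it was -1.67 for H2-D1, -1.82 for H2-K1, -1.10 for Ezh1, -2.72 for Cdkn1a, -5.23 for Ifi44, -1.75 for Cd96, -5.78 for Atoh8, -1.55 for Dhx58, -1.03 for Btg2, -4.24 for Fzd6, -3.94 for Spry2, -0.65 for Syk and -2.12 for Tet2. The rest of the 38 falls had -3.72 for Wdfy4, -3.61 for Kazn, -3.20 for Iigp1, -0.54 for Tap1, -0.99 for Rn45s, -1.25 for Ptcra, -3.90 for Hk3, -1.30 for Ccnd2, -1.46 for Il17re, -1.04 for Sema7a, -1.37 for Rag2 and -1.80 for Cmah. Among genes that rose by more at DN2/3 it was 1.02 for Sh2d1a, 0.64 for Tcf7, 2.62 for Cd8b1, 0.92 for Pgk1, 2.34 for Cd2, 1.57 for Ccnb1, 1.72 for Wnt5b, 0.91 for Slc3a2, 2.66 for Cd8a, 1.01 for Ccnd3, 1.74 for Cd81, 0.93 for Il12rb2, 0.72 for Hmgb1, 1.31 for Tuba1c, 0.39 for Igf2r, 0.92 for Bop1, 0.64 for Dusp7 and 0.42 for Polr1d. Among genes that rose by more at DN4 it was -1.63 for Mylip, -2.22 for Lmo2, -4.93 for Cpa3, -3.44 for Lyl1, -1.04 for Dusp2, -1.89 for Slc7a11 and -1.18 for Dpp4.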

How the results depend on the processing

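The count of genes changed lay between 3733 and 4698 under other normalizations, filters, tools and fits of fewer groups (the replicate block and the Xist libraries are given below), and between 3514 and 4229 when 1 library was left out. Over those leave-one-out fits rises numbered 1814 to 2170 and falls 1700 to 2059, rises of over 2-fold 983 to 1075 and falls of over 2-fold 986 to 1132, rises on chromosome 15 205 to 254, and the log2 fold 6.73 to 7.16 for Lmo2 and -0.44 to -0.29 for Ldb1. A replicate block gave 5018 genes, but same-numbered Lmo2tg and wild-type libraries did not deviate together (r across genes -0.12 to -0.01), so the numbers do not pair them. Without the 4 libraries with Xist 1130 genes were called (517 higher and 613 lower, 400 and 523 by over 2-fold, 43 rises on chromosome 15); that fit has 1 wild-type library, and the cause was not tested. Ldb1 was called in a fit of the compared groups alone (-0.35, adjusted p = 0.0418). In the shorter window of 250 bases before the start, CANNTG was in 57.1%, 60.9% and 58.2% of promoters of genes called higher, called lower and tested. There GATA was in 39.3%, 40.3% and 41.6%, and the 2 motifs together in 24.5%, 26.3% and 25.7%. Of 2357 values of the 118 named genes under 20 alternatives, 2273 kept direction and call, 83 lost the call (44 of them without the 4 libraries with Xist), 1 gained it and 0 reversed. Of 997 values of 50 genes named after their values were seen, 915 kept direction and call, 70 lost the call (26 of them without the Xist libraries), 12 gained it and 0 reversed. Depth limits genes near 3 counts, and the shallow Lmo2tg libraries most.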
